A study of Mus musculus with 30 samples.

Results

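Macrophages from tumours were compared after 24 h of culture with 20 mM sodium L-lactate and straight after sorting, in each of 2 subsets, MHC-IIhi and MHC-IIlo. The comparison used 20 of the 30 RNA-seq libraries: the columns of the raw count table named for lactate-cultured or fresh cells of either subset, 5 in each of the 4 groups. All cells were tumour-associated macrophages (TAMs) sorted from subcutaneous 3LL-R tumours, a Lewis lung carcinoma line, grown in wild-type C57BL/6 mice. The lactate-cultured MHC-IIhi and MHC-IIlo groups came from 250000 sorted cells that were lysed in the culture plate, and the fresh MHC-IIhi and MHC-IIlo groups came from 30000 cells sorted directly into lysis buffer. A further 5 libraries of each subset were cultured for 24 h without lactate from the same number of sorted cells. Their values are given beside the lactate-cultured ones for some genes only. Every lactate-cultured group therefore differed from its fresh group in time out of the tumour, culture, cell number and lactate together, and these cannot be told apart in this comparison. The labels call the 5 libraries of a group biological replicates without saying whether each came from 1 mouse or a pool, so p-values measure the spread between these libraries.

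TAMs are monocyte-derived and tissue-derived phagocytes that take on properties set by the tumour around them. Surface MHC class II, which shows peptides to CD4+ T cells, separates a subset that carries antigen-presentation genes from one that carries scavenger and tissue-repair genes and lies more often in hypoxic regions. Lactate is the end product of glycolysis, is exported by tumour cells with protons through monocarboxylate transporters, and reaches millimolar levels in tumours. The question of the comparison is which parts of the expression of cells sorted fresh from the tumour were still there after culture in medium that held lactate but no tumour.

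The lactate-cultured libraries held 16965012 to 30135127 counts for MHC-IIhi and 18752181 to 31481548 for MHC-IIlo, and the fresh libraries 16913250 to 21407666 for MHC-IIhi and 17838799 to 20999665 for MHC-IIlo. Expression is given as CPM, a gene's reads scaled to a common library size with TMM factors, as mean ± SD of 5 libraries or for each library. The first principal component, 53.7% of the variance, separated cultured from fresh libraries, and the second, 14.1%, separated the subsets. One library, lactate-cultured MHC-IIlo 5, stood apart: its mean correlation with its own group was 0.9611, where the other 4 had 0.973 to 0.981, and its TMM factor was 1.28, where theirs were 0.919 to 1.01. Without it, 16 of 186 genes followed gained a call of a difference between the subsets and 1, H2-DMb2, lost it. The change was then called more positive in MHC-IIlo than in MHC-IIhi for Cbr2, Clec7a, Il7r, Itgax, Lipa, Ly6a and Psap (log2 difference 0.85 to 1.45) and more negative for Cd74, Cxcl16, H2-Aa, Il1b, Ly6c2, Msr1, mt-Cytb, Pdia3 and Slc7a11 (log2 difference -3.94 to -0.43). Over fresh, Atp5b and Calr in MHC-IIhi and Kit, Pdia3 and Trem2 in MHC-IIlo passed the test without it. All 10 macrophage markers had a mean of 1 CPM or more in every group, a low bar that does not test identity. Over fresh, 3 of them rose and 5 fell in MHC-IIhi, and 2 rose and 6 fell in MHC-IIlo. Their summed level was 5411 to 9606 CPM in lactate-cultured and 9859 to 13760 CPM in fresh MHC-IIhi libraries. In MHC-IIlo it was 3008 to 8688 CPM in lactate-cultured and 17040 to 23700 CPM in fresh libraries. In bulk RNA, fewer cells of a type and less RNA per cell cannot be told apart.

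Many genes differed between lactate-cultured and fresh cells, and a large part of the transcriptome stayed close to its level in fresh cells. Of 13583 genes tested with edgeR's quasi-likelihood F test, 7846 (57.8%) were called in MHC-IIhi and 7226 (53.2%) in MHC-IIlo at an adjusted p under 0.05. Of these, 3899 (28.7% of those tested) rose and 3947 (29.1%) fell in lactate-cultured MHC-IIhi cells, and 3504 (25.8%) rose and 3722 (27.4%) fell in lactate-cultured MHC-IIlo cells. TMM scaling centres the fold changes (median log2 fold change 0.012 in MHC-IIhi and 0.0078 in MHC-IIlo), so the near-equal numbers of rises and falls are not read as a result. On total counts without TMM, 46.6% of the calls in MHC-IIhi and 48.4% in MHC-IIlo were rises. Because so many genes passed, size was tested too. Changes of more than 2-fold were called for 963 higher (7.09%) and 936 lower (6.89%) genes in MHC-IIhi and for 636 higher (4.68%) and 943 lower (6.94%) genes in MHC-IIlo. A gene is called kept where the 95% interval of its log2 fold change (lactate-cultured over fresh) lay wholly between -1 and 1, which held for 6957 genes (51.2%) in MHC-IIhi and 7358 (54.2%) in MHC-IIlo. These shares, and those of the genes that rose and fell, are the background for the counts in each list, where a share near them is no result about the list. Those neither kept nor more than 2-fold changed were 4727 (34.8%) and 4646 (34.2%). The 5 lactate-cultured values did not overlap the 5 fresh ones for 5847 genes (43.0%) in MHC-IIhi and 4984 (36.7%) in MHC-IIlo.

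Most of the larger falls were shared by the subsets. Of the genes more than 2-fold higher, 523 (3.85% of those tested) were so in both subsets, 54.3% of those in MHC-IIhi and 82.2% of those in MHC-IIlo, and of those more than 2-fold lower, 607 (4.47%) were so in both, 64.9% and 64.4% of each, while 8 (0.0589%) changed by more than 2-fold in opposite directions. Without a limit on size, 2681 genes (19.7%) rose in both subsets and 2748 (20.2%) fell in both. Genes kept in both numbered 6071 (44.7%). Across genes, which are not independent replicates, the log2 fold changes of the subsets had a Pearson correlation of 0.822. The change itself differed between the subsets for 1673 genes (12.3%), 691 (5.09%) with the more positive change in MHC-IIlo and 982 (7.23%) with the more negative one, and 143 genes (1.05%) were called in opposite directions. Levels after culture with lactate differed from those after culture without it for 34 of 13593 genes (0.250%) in MHC-IIhi, 28 higher (0.206%) and 6 lower (0.0441%) with lactate, and for 202 (1.49%) in MHC-IIlo, 123 higher (0.905%) and 79 lower (0.581%). DESeq2 called 95 higher and 38 lower in MHC-IIhi and 382 and 333 in MHC-IIlo. Leaving out 1 library gave 6 to 41 higher and 2 to 13 lower in MHC-IIhi and 36 to 349 higher and 14 to 409 lower in MHC-IIlo, the highest of the MHC-IIlo counts without lactate-cultured MHC-IIlo 1. In MHC-IIlo a count moved by more than 1.5 times without any 1 of the 10 MHC-IIlo libraries, and without lactate-cultured MHC-IIhi 5 or no-lactate MHC-IIhi 4. In MHC-IIhi one did so without any 1 of the 10 MHC-IIhi libraries, and without lactate-cultured MHC-IIlo 5 or no-lactate MHC-IIlo 1, 3, 5 or 6.

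**Figure D1:**
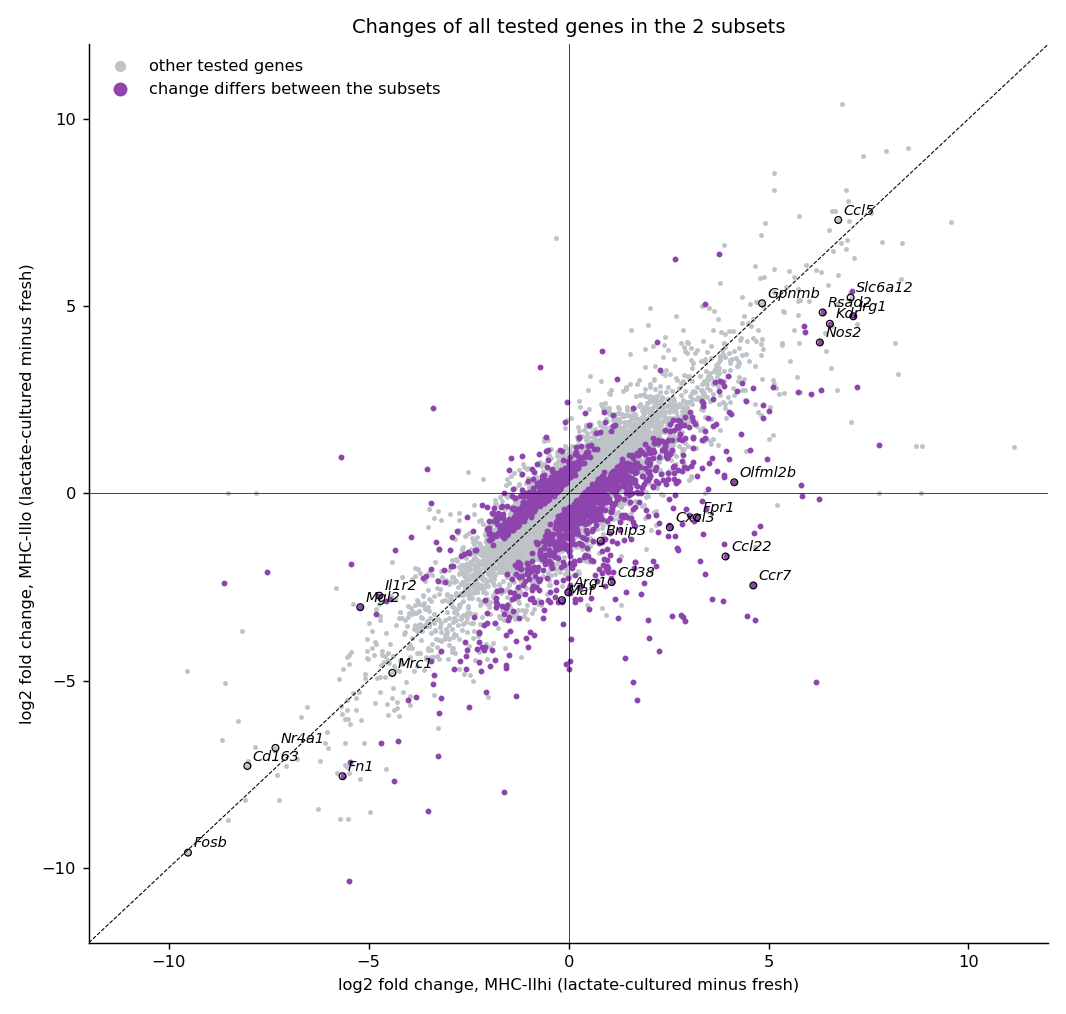
Log2 fold change (lactate-cultured over fresh) of the 13583 tested genes in MHC-IIhi (x axis) and MHC-IIlo (y axis) cells, with the 1673 genes whose change differed between the subsets in purple. Most genes lie along the diagonal, where both changes are equal, while Ccr7, Ccl22 and Fpr1 lie far to its right and Mgl2 and Il1r2 above it.

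Genes of MHC class II presentation fell. Of 12 genes measured, 11 fell and 1 rose in MHC-IIhi, with 10 of them more than 2-fold lower, and 10 fell and 1 rose in MHC-IIlo, with 9 more than 2-fold lower. None was kept within 2-fold in either subset. The median log2 fold change was -2.56 in MHC-IIhi and -2.86 in MHC-IIlo, where the median of all genes was 0.01 in both. H2-Ab1, a chain of the class II molecule (ENSMUSG00000073421, chr17:34263209-34269418, plus strand; coordinates here and below are GRCm38), had 1336, 924, 1080, 804 and 972 CPM in lactate-cultured MHC-IIhi libraries, against 4456, 5375, 4780, 5412 and 4461 CPM in fresh ones. It had 16, 22.9, 21.8, 7.6 and 14.4 CPM in lactate-cultured MHC-IIlo libraries, against 68, 125, 114, 83.1 and 55.4 CPM in fresh ones. Every lactate-cultured library lay below every fresh library of its subset (log2 fold change -2.26 ± 0.254 (SE), adjusted p = 2.01e-07 in MHC-IIhi, and log2 fold change -2.43 ± 0.259 (SE), adjusted p = 1.36e-07 in MHC-IIlo).

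The order of the subsets was the same after culture. H2-Ab1 averaged 1023 ± 201 CPM in lactate-cultured MHC-IIhi cells and 16.5 ± 6.18 CPM in lactate-cultured MHC-IIlo cells, and all 5 of the first lay above all 5 of the second. Cd74, the invariant chain that guides class II molecules to the peptide-loading compartment (ENSMUSG00000024610, chr18:60803848-60812646, plus strand), fell to 2403 ± 545 CPM in lactate-cultured MHC-IIhi cells, against 10840 ± 999 CPM in fresh ones (log2 fold change -2.17 ± 0.284 (SE), adjusted p = 1.59e-06), and to 54 ± 24.7 CPM in lactate-cultured MHC-IIlo cells, against 531 ± 148 CPM in fresh ones (log2 fold change -3.29 ± 0.298 (SE), adjusted p = 1.34e-08). Without lactate it stood at 2903 ± 729.5 CPM in MHC-IIhi and 99.3 ± 70.2 CPM in MHC-IIlo. Ciita, the co-activator that switches class II genes on (ENSMUSG00000022504, chr16:10488178-10527564, plus strand), had 37.1, 18.5, 20.6, 22.5 and 26.9 CPM in lactate-cultured MHC-IIhi libraries, against 210, 285, 173, 172 and 176 CPM in fresh ones. It had 0.622, 0.237, 0.0481, 0 and 0.36 CPM in lactate-cultured MHC-IIlo libraries, against 3.02, 8.83, 9.01, 4.39 and 2.23 CPM in fresh ones. The groups did not overlap in either subset (log2 fold change -3.01 ± 0.333 (SE), adjusted p = 1.57e-07 in MHC-IIhi, and log2 fold change -4.42 ± 0.511 (SE), adjusted p = 4.19e-07 in MHC-IIlo).

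The change differed between the subsets for 4 of the 12 class II genes, 2 in each direction, and no difference was called for the other 8. Among all tested genes a difference was called for 12.3%. H2-DMb1, a chain of the class II peptide exchanger, changed by -3.25 ± 0.184 (log2, SE) in MHC-IIhi and -1.49 ± 0.176 in MHC-IIlo, a log2 difference of 1.76 ± 0.244 (SE), adjusted p = 9.56e-05. H2-DMa, its partner chain, differed in the same direction, by 1.42 ± 0.384 (SE), adjusted p = 0.0193. H2-DMb2, a close copy of H2-DMb1 whose reads may not be split from it with certainty, differed the other way, by -1.49 ± 0.46 (SE), adjusted p = 0.0376, a call lost in 12 of the 20 fits without 1 library (at -1.51 to -1.19) and turned on log2(FPKM + 1), where the log2 difference was 0.98. The surface chain H2-Eb1 also had the more negative change in MHC-IIlo: its change was -2.72 ± 0.312 in MHC-IIhi and -4.48 ± 0.361 in MHC-IIlo, a log2 difference of -1.76 ± 0.447 (SE), adjusted p = 0.0131. H2-Eb1 is also a gene whose cultured levels differed with lactate, at 1.59 ± 0.684 CPM with lactate and 9.02 ± 11.7 CPM without in MHC-IIlo (log2 difference -2.50 ± 0.584 (SE), adjusted p = 0.0372, a call lost in 8 of the 20 fits without 1 library, at -2.72 to -1.28). The 1 list member that rose was Ctss, the protease cathepsin S that trims the invariant chain, with 7215 CPM in lactate-cultured and 3342 CPM in fresh MHC-IIhi cells, and 7283 and 4120 CPM in the corresponding MHC-IIlo cells (log2 fold change 1.11 ± 0.233 (SE), adjusted p = 0.00036 in MHC-IIhi, and log2 fold change 0.82 ± 0.231 (SE), adjusted p = 0.00516 in MHC-IIlo).

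MHC class I presentation, which shows peptides from inside the cell to CD8+ T cells, went the other way. Of 13 genes, 10 rose in MHC-IIhi and 11 in MHC-IIlo, 7 and 6 of them more than 2-fold, and none fell in either subset. Without lactate-cultured MHC-IIlo 5, Pdia3 fell in MHC-IIlo (log2 fold change -0.31, adjusted p = 0.00495). The median log2 fold change was 1.40 and 1.25. B2m, the shared light chain of class I molecules (ENSMUSG00000060802, chr2:122147686-122153083, plus strand), had 6876, 7069, 8243, 5387 and 6152 CPM in lactate-cultured MHC-IIhi libraries, against 1629, 1209, 1419, 1817 and 1645 CPM in fresh ones. It had 6366, 7894, 9304, 4451 and 6779 CPM in lactate-cultured MHC-IIlo libraries, against 2501, 1876, 1821, 2405 and 2434 CPM in fresh ones. All cultured values lay above all fresh ones in both subsets. Tapbp, which holds empty class I molecules at the peptide transporter, averaged 1314 CPM in lactate-cultured and 289.7 CPM in fresh MHC-IIhi cells (log2 fold change 2.19 ± 0.181 (SE), adjusted p = 2.56e-09), and 1322 and 308 CPM in MHC-IIlo (log2 fold change 2.11 ± 0.18 (SE), adjusted p = 6.06e-09). Nlrc5, the class I counterpart of Ciita, rose, with log2 fold changes of 2.33 ± 0.175 in MHC-IIhi and 1.39 ± 0.171 in MHC-IIlo, a log2 difference of -0.95 ± 0.237 (SE), adjusted p = 0.0122. The chaperones Calr and Pdia3, which serve many other proteins too, were kept in both subsets.

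Markers of alternative activation, the scavenging and tissue-repair state described for macrophages exposed to interleukin-4, fell nearly as a whole. Of 17 genes, 14 fell in MHC-IIhi and 16 in MHC-IIlo, 11 and 14 of them more than 2-fold, and none rose. The median log2 fold change was -3.00 and -3.21. Cd163, the receptor for haemoglobin bound to haptoglobin (ENSMUSG00000008845, chr6:124304656-124330527, plus strand), had 0.148, 0.279, 0.427, 0.217 and 0.851 CPM in lactate-cultured MHC-IIhi libraries, against 109.9, 60.4, 81.7, 106 and 133 CPM in fresh ones. It had 0.533, 3.11, 7.02, 3.92 and 3.44 CPM in lactate-cultured MHC-IIlo libraries, against 443, 467, 458, 727 and 699 CPM in fresh ones. No cultured value came near a fresh one (log2 fold change -8.03 ± 0.512 (SE), adjusted p = 5.55e-11 in MHC-IIhi, and log2 fold change -7.28 ± 0.442 (SE), adjusted p = 3.88e-11 in MHC-IIlo).

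Mrc1, the mannose receptor (ENSMUSG00000026712, chr2:14229392-14332057, plus strand), had 177, 135, 101, 153 and 125 CPM in lactate-cultured MHC-IIhi libraries, against 3665, 2274, 2342, 2855 and 3577 CPM in fresh ones. It had 354, 289, 220.1, 105 and 329.8 CPM in lactate-cultured MHC-IIlo libraries, against 7592, 6381, 5479, 7750 and 8870 CPM in fresh ones. Every cultured library lay below every fresh one (log2 fold change -4.41 ± 0.286 (SE), adjusted p = 7.39e-11 in MHC-IIhi, and log2 fold change -4.79 ± 0.292 (SE), adjusted p = 3.99e-11 in MHC-IIlo). The no-lactate cells had 166 ± 21.2 CPM in MHC-IIhi and 414 ± 70.1 CPM in MHC-IIlo. Mgl2, a galactose-binding lectin, fell further in MHC-IIhi (log2 fold change -5.21 ± 0.432) than in MHC-IIlo (log2 fold change -3.04 ± 0.393), a log2 difference of 2.17 ± 0.526 (SE), adjusted p = 0.0101. Stab1, a scavenger receptor of tumour and sinusoidal macrophages, fell further in MHC-IIlo (log2 fold change -3.79 ± 0.353) than in MHC-IIhi (log2 fold change -1.56 ± 0.324), a log2 difference of -2.23 ± 0.453 (SE), adjusted p = 0.00284. The transcription factors Klf4 and Irf4, both tied to this state, fell, with log2 fold changes of -3.93 ± 0.345 and -2.38 ± 0.236 in MHC-IIhi and -3.21 ± 0.334 and -2.47 ± 0.27 in MHC-IIlo. Ccl24, Clec10a and Chil3 fell more than 2-fold in both subsets. Arg1 and Msr1 were among the 3 kept in MHC-IIhi.

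Genes that define macrophages divided in 2 ways. Of 15 identity genes, 3 rose, 7 fell and 5 were kept in MHC-IIhi, and 2 rose, 10 fell and 4 were kept in MHC-IIlo, where some genes both passed the test and stayed within 2-fold. Csf1r, the receptor for the macrophage growth factor CSF1 (ENSMUSG00000024621, chr18:61105572-61132149, plus strand), had 1569, 1507, 1190, 1000 and 1274 CPM in lactate-cultured MHC-IIhi libraries, against 1389, 1387, 1314, 1565 and 1513 CPM in fresh ones. It had 726, 525, 464, 161 and 479 CPM in lactate-cultured MHC-IIlo libraries, against 1268, 1164, 1078, 1378 and 1312 CPM in fresh ones. In MHC-IIhi the groups overlapped and the gene was kept (log2 fold change -0.13 ± 0.238, SE, 95% interval -0.62 to 0.37), while in MHC-IIlo it fell (log2 fold change -1.40 ± 0.242 (SE), adjusted p = 6.2e-05), and the changes differed by a log2 difference of -1.27 ± 0.337 (SE), adjusted p = 0.0174. Maf, a transcription factor of tissue macrophages, was likewise kept in MHC-IIhi and fell in MHC-IIlo: it averaged 312 ± 81.9 CPM in lactate-cultured and 351 ± 108 CPM in fresh MHC-IIhi cells, and 151 ± 78 CPM in lactate-cultured and 1088 ± 209 CPM in fresh MHC-IIlo cells, a difference between the changes of -2.69 ± 0.435 (SE), adjusted p = 0.000425.

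Adgre1, which encodes the F4/80 antigen, rose to 938 ± 257 CPM in lactate-cultured MHC-IIhi cells, against 184 ± 51.9 CPM in fresh ones (log2 fold change 2.35 ± 0.218 (SE), adjusted p = 1.31e-08), and was kept in MHC-IIlo, with 739 ± 127 and 575 ± 115 CPM. Cd68, a lysosomal glycoprotein, rose in both subsets (log2 fold change 0.69 ± 0.225 (SE), adjusted p = 0.0122 in MHC-IIhi, and log2 fold change 0.75 ± 0.225 (SE), adjusted p = 0.0082 in MHC-IIlo). Itgam, the CD11b integrin chain, fell in both, with log2 fold changes of -1.24 ± 0.194 in MHC-IIhi and -2.22 ± 0.200 in MHC-IIlo. Itgax, the CD11c chain, fell to 37.1 ± 12.5 CPM in lactate-cultured MHC-IIhi cells, against 632 ± 46.5 CPM in fresh ones (log2 fold change -4.09 ± 0.244 (SE), adjusted p = 2.06e-11). Ccr2, the receptor that brings monocytes out of the bone marrow, fell to 25.9 ± 10.7 CPM in lactate-cultured MHC-IIhi cells, against 1148 ± 136 CPM in fresh ones (log2 fold change -5.46 ± 0.336 (SE), adjusted p = 3.07e-11), and to 2.93 ± 1.3 CPM in lactate-cultured MHC-IIlo cells, against 428 ± 105 CPM in fresh ones (log2 fold change -7.18 ± 0.37 (SE), adjusted p = 4.85e-12). It was lower with lactate than without in MHC-IIlo, where no-lactate cells had 11 ± 3.89 CPM (log2 difference -1.90 ± 0.447 (SE), adjusted p = 0.0389, a call lost in 9 of the 20 fits without 1 library, at -2.03 to -1.66). Of the 9 monocyte markers, 6 fell and 2 rose in MHC-IIhi and 8 fell and 1 rose in MHC-IIlo, and the gene that rose in both was Ly6c2, with 176 CPM in lactate-cultured and 4.85 CPM in fresh MHC-IIhi cells, and 23.9 and 3.41 CPM in MHC-IIlo.

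Receptors for debris and antibody included genes that rose and genes that fell, as did the genes at large. Among 11 scavenger receptors, 4 rose and 5 fell in MHC-IIhi, and 3 rose and 6 fell in MHC-IIlo. Among all tested genes, 28.7% rose and 29.1% fell in MHC-IIhi, and 25.8% and 27.4% in MHC-IIlo. Cd36, which takes up oxidised lipoproteins, rose to 513 ± 161 CPM in lactate-cultured MHC-IIhi cells, against 68.2 ± 17.2 CPM in fresh ones (log2 fold change 2.91 ± 0.298 (SE), adjusted p = 5.34e-08). Clec7a, the receptor for fungal glucans, fell there, with a log2 fold change of -2.48 ± 0.284. Of 6 Fc receptor genes, the activating Fcgr1 rose in both subsets (log2 fold change 1.95 ± 0.283 in MHC-IIhi and 1.22 ± 0.277 in MHC-IIlo) and the inhibitory Fcgr2b fell in both (log2 fold change -2.23 ± 0.187 and -3.73 ± 0.199, a log2 difference of -1.50 ± 0.254 (SE), adjusted p = 0.000628). Among 12 genes of dead-cell uptake, 3 rose and 7 fell in MHC-IIhi, and 3 rose and 6 fell in MHC-IIlo. The bridging ligands Gas6 and Pros1 fell in both subsets, and Mfge8, another bridge to dying cells, rose in both.

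Complement genes moved in both directions. All 3 chains of C1q, which starts the classical pathway and is a product of resident-like macrophages, fell more than 2-fold in both subsets. C1qb averaged 165 ± 90.3 CPM in lactate-cultured and 1019 ± 270.3 CPM in fresh MHC-IIhi cells (log2 fold change -2.62 ± 0.457 (SE), adjusted p = 5.25e-05), and 318 ± 183 and 1922 ± 325 CPM in MHC-IIlo (log2 fold change -2.60 ± 0.456 (SE), adjusted p = 7.12e-05). C3, the protein at which the pathways meet, rose to 692 ± 104 CPM in lactate-cultured MHC-IIhi cells, against 79.9 ± 14.1 CPM in fresh ones (log2 fold change 3.12 ± 0.179 (SE), adjusted p = 1.27e-11), and to 448 ± 129.6 CPM in lactate-cultured MHC-IIlo cells, against 158 ± 17.4 CPM in fresh ones (log2 fold change 1.51 ± 0.168 (SE), adjusted p = 2.62e-07). Cfb, the enzyme of the alternative pathway, rose more than 2-fold in both subsets. Over the 16 genes, 4 rose and 10 fell in MHC-IIhi, and 4 rose and 11 fell in MHC-IIlo. For all tested genes the shares that rose and fell were 28.7% and 29.1% in MHC-IIhi, and 25.8% and 27.4% in MHC-IIlo.

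**Figure D2:**
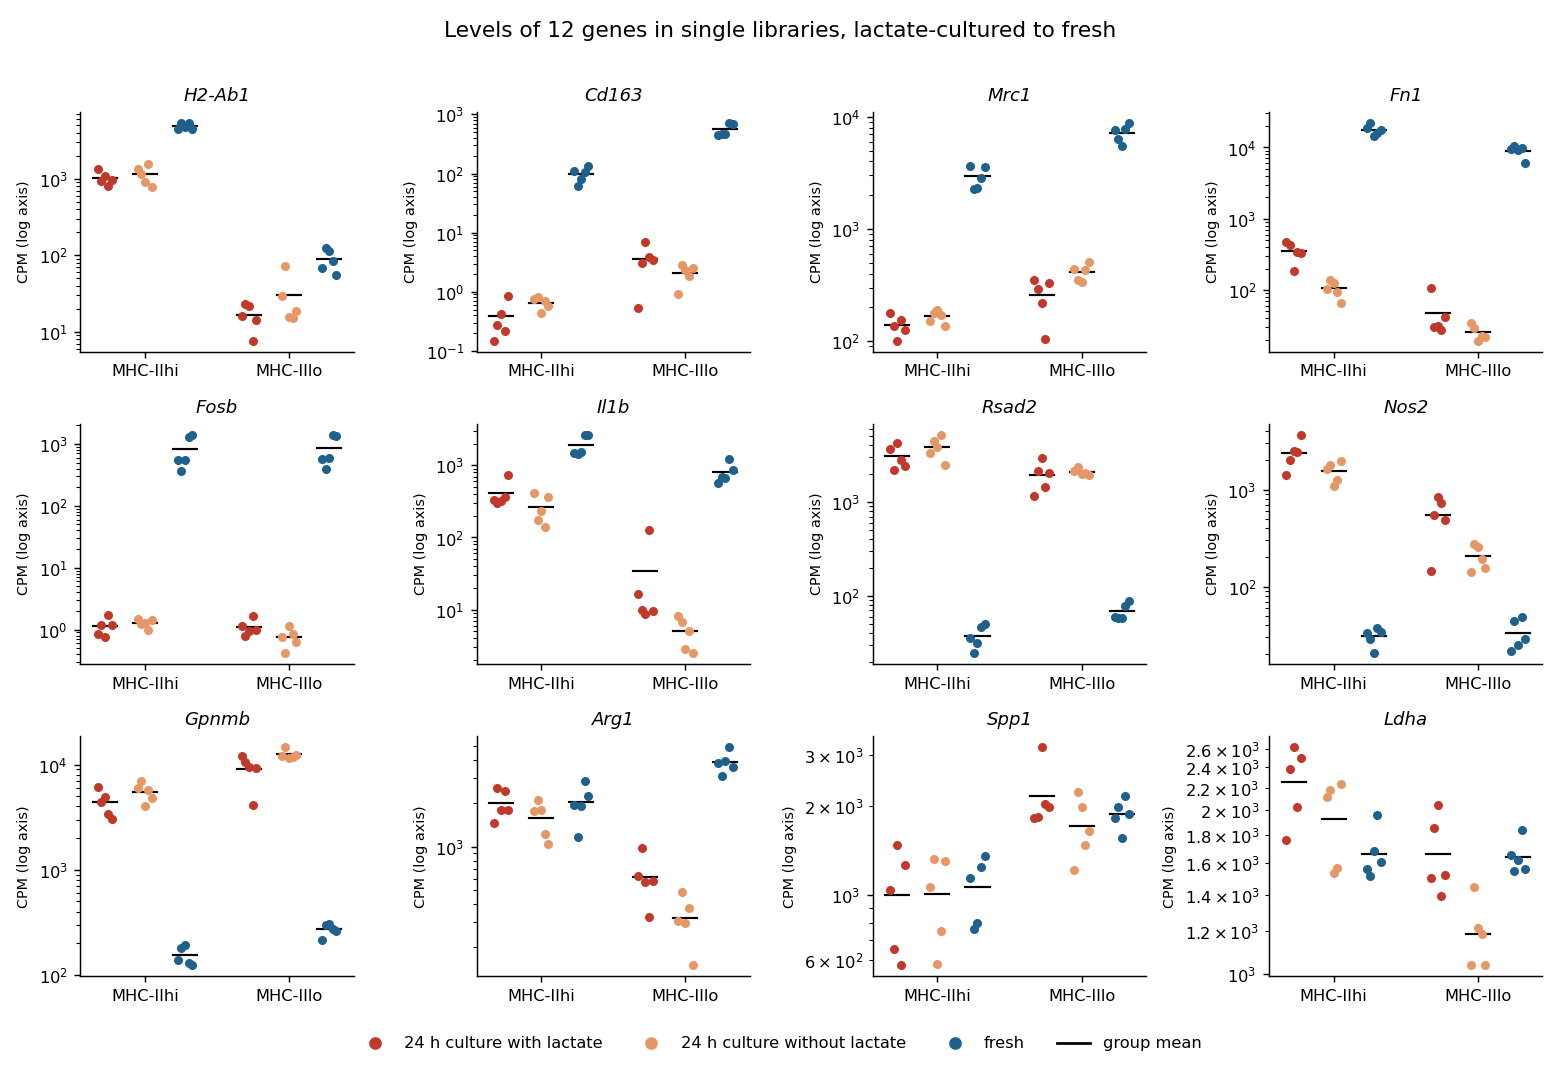
CPM on log axes for 12 genes, 1 point per library, in lactate-cultured (red), no-lactate (orange) and fresh (blue) cells of each subset, with lines at the group means. H2-Ab1, Cd163, Mrc1, Fn1, Fosb and Il1b lie lower in the lactate-cultured than in the fresh libraries of both subsets, Rsad2, Nos2 and Gpnmb lie higher, and for Spp1 the lactate-cultured and fresh points overlap in both.

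Genes of lipid-laden and phagocytic macrophages mostly rose. Of 18 such genes, 12 rose and 2 fell in MHC-IIhi (median log2 fold change 1.23), and 11 rose and 2 fell in MHC-IIlo (median 0.90). Gpnmb, a transmembrane glycoprotein of such cells (ENSMUSG00000029816, chr6:49036546-49070929, plus strand), had 6119, 4385, 4915, 3371 and 3055 CPM in lactate-cultured MHC-IIhi libraries, against 138, 181, 194, 129.8 and 123 CPM in fresh ones. It had 12200, 10550, 9425, 4126 and 9359 CPM in lactate-cultured MHC-IIlo libraries, against 217, 300, 304, 272 and 264 CPM in fresh ones. Each cultured library lay far above each fresh one (log2 fold change 4.84 ± 0.278 (SE), adjusted p = 1.27e-11 in MHC-IIhi, and log2 fold change 5.08 ± 0.281 (SE), adjusted p = 1.09e-11 in MHC-IIlo). Plin2, the coat of lipid droplets, and Lipa, the lysosomal lipase, rose more than 2-fold in both subsets (log2 fold change 1.86 ± 0.22 and 1.92 ± 0.28 in MHC-IIhi, and 1.72 ± 0.219 and 2.61 ± 0.287 in MHC-IIlo).

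Apoe, a lipid carrier, fell (ENSMUSG00000002985, chr7:19696109-19699166, minus strand). It had 366, 380.1, 274, 250.4 and 222 CPM in lactate-cultured MHC-IIhi libraries, against 1753, 687, 1568, 2002 and 1743 CPM in fresh ones. It had 1487, 1413, 1525, 613 and 1482 CPM in lactate-cultured MHC-IIlo libraries, against 5262, 3743, 3982, 5487 and 6035 CPM in fresh ones. The groups did not overlap in either subset (log2 fold change -2.37 ± 0.276 (SE), adjusted p = 3.26e-07 in MHC-IIhi, and log2 fold change -1.91 ± 0.271 (SE), adjusted p = 6e-06 in MHC-IIlo). Spp1, osteopontin, a secreted marker of tumour macrophages (ENSMUSG00000029304, chr5:104435118-104441050, plus strand), was kept in both subsets. It had 1035, 651, 1470, 574 and 1260 CPM in lactate-cultured MHC-IIhi libraries, against 1135, 762, 797, 1244 and 1353 CPM in fresh ones. It had 1818, 1836, 3179, 2039 and 1986 CPM in lactate-cultured MHC-IIlo libraries, against 1823, 1983, 1559, 2167 and 1875 CPM in fresh ones. The groups overlapped in both, with 95% intervals of the log2 fold change of -0.57 to 0.41 in MHC-IIhi and -0.28 to 0.70 in MHC-IIlo. Trem2, the lipid receptor that names this state, was kept in MHC-IIhi, with 174 ± 60.6 CPM in lactate-cultured and 181 ± 28.5 CPM in fresh cells, and in MHC-IIlo it had 288 ± 121 and 211 ± 19.5 CPM (adjusted p = 0.165), where it passed the test without lactate-cultured MHC-IIlo 5 (log2 fold change 0.67, adjusted p = 0.00527).

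Lysosomal genes also rose more often than they fell: of 29, 18 rose and 4 fell in MHC-IIhi, and 17 rose and 3 fell in MHC-IIlo, with 13 and 14 kept within 2-fold, where 51.2% of all tested genes were kept in MHC-IIhi and 54.2% in MHC-IIlo. The proteases Ctsk and Ctsl and the sterol carrier Npc2 rose in both subsets, Ctsk with log2 fold changes of 2.59 ± 0.281 in MHC-IIhi and 2.19 ± 0.276 in MHC-IIlo. Atp6v1a, a subunit of the proton pump, had log2 fold changes of 1.31 ± 0.145 and 1.35 ± 0.146. Ctsc, the protease that activates granule enzymes, fell in both subsets, and further in MHC-IIlo (log2 fold change -1.57 ± 0.237 in MHC-IIhi and -3.07 ± 0.25 in MHC-IIlo, a log2 difference of -1.50 ± 0.329 (SE), adjusted p = 0.00522). Lamp2 and Tpp1 were kept in both.

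Fibronectin, the matrix protein Fn1 (ENSMUSG00000026193, chr1:71585520-71653200, minus strand), fell in both subsets. It had 477, 433, 184, 342 and 329 CPM in lactate-cultured MHC-IIhi libraries, against 18450, 22300, 14530, 15940 and 17770 CPM in fresh ones. It had 108, 30, 31.8, 27.8 and 42.3 CPM in lactate-cultured MHC-IIlo libraries, against 9414, 10620, 9267, 9742 and 5987 CPM in fresh ones. No lactate-cultured library reached the lowest fresh one (log2 fold change -5.65 ± 0.389 (SE), adjusted p = 1.75e-10 in MHC-IIhi, and log2 fold change -7.55 ± 0.425 (SE), adjusted p = 1.35e-11 in MHC-IIlo), and the fall was larger in MHC-IIlo (difference -1.90 ± 0.456 (SE), adjusted p = 0.00947). In MHC-IIhi the level after culture was higher with lactate than without, where it was 106 ± 27.4 CPM (log2 difference 1.75 ± 0.331 (SE), adjusted p = 0.0253, a call lost in 8 of the 20 fits without 1 library, at 1.61 to 1.85). Over 19 matrix genes, 6 rose and 8 fell in MHC-IIhi, and 3 rose and 13 fell in MHC-IIlo. The shares of all tested genes that rose and fell were 28.7% and 29.1% in MHC-IIhi, and 25.8% and 27.4% in MHC-IIlo.

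Secreted matrix proteases went in different directions. Mmp8, a collagenase, rose to 1783 ± 289 CPM in lactate-cultured MHC-IIhi cells, against 767 ± 133 CPM without lactate and 176 ± 48.1 CPM in fresh cells (log2 fold change 3.34 ± 0.305 (SE), adjusted p = 1.04e-08 over fresh, and log2 difference 1.23 ± 0.258 (SE), adjusted p = 0.0472, a call lost in 19 of the 20 fits without 1 library, at 1.12 to 1.32 over no-lactate), and to 1168 ± 498 CPM in lactate-cultured MHC-IIlo cells, against 433 ± 102 CPM in fresh ones (log2 fold change 1.43 ± 0.284 (SE), adjusted p = 0.000252). Mmp8 was the most abundant neutrophil marker in cultured cells, and Mmp9 in fresh ones. The markers summed to 1628 to 2354 CPM in lactate-cultured and 275.7 to 717.2 CPM in fresh MHC-IIhi libraries, and 469 to 1697 CPM and 1024 to 2020 CPM in MHC-IIlo. Ly6g, the surface marker of mouse neutrophils, was at 0 in all lactate-cultured libraries, and S100a9 was at 0.0254 CPM in lactate-cultured MHC-IIhi and 0.0598 CPM in lactate-cultured MHC-IIlo cells, against 12.6 and 27 CPM in fresh ones. Their part in the rise of Mmp8 was not tested. Mmp9, a gelatinase, fell, with log2 fold changes of -2.22 ± 0.349 in MHC-IIhi and -3.50 ± 0.367 in MHC-IIlo. Mmp12, the macrophage elastase, rose in both (log2 fold change 1.11 ± 0.233 (SE), adjusted p = 0.000395 in MHC-IIhi, and log2 fold change 0.85 ± 0.232 (SE), adjusted p = 0.00419 in MHC-IIlo). Vcan, a proteoglycan of monocytes, fell in both, with log2 fold changes of -1.80 ± 0.248 and -2.96 ± 0.259. Tgfbi, an adhesive matrix protein, fell further in MHC-IIlo (log2 fold change -2.79 ± 0.309) than in MHC-IIhi (log2 fold change -0.91 ± 0.291), a log2 difference of -1.88 ± 0.413 (SE), adjusted p = 0.00518.

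Cdh1, the adhesion protein E-cadherin, fell to 9.83 ± 1.17 CPM in lactate-cultured MHC-IIhi cells, against 438 ± 41.8 CPM in fresh ones (log2 fold change -5.47 ± 0.219 (SE), adjusted p = 1.86e-13), and to 1.58 ± 0.668 CPM in lactate-cultured MHC-IIlo cells, against 113 ± 27.6 CPM in fresh ones (log2 fold change -6.16 ± 0.236 (SE), adjusted p = 2.06e-13). It is on the list of epithelial and tumour cell markers, whose summed level was 34.22 to 65.67 CPM in lactate-cultured and 506.7 to 580.1 CPM in fresh MHC-IIhi libraries, and 37.29 to 75.36 and 137.7 to 281 CPM in MHC-IIlo. Of the other markers of that list, Krt14 and Krt5 were at 0 in these 4 groups, and Krt8 averaged 37 CPM in lactate-cultured and 93.6 CPM in fresh MHC-IIhi cells. Their part in the result was not tested. Kdr, a VEGF receptor known from endothelium, rose to 320 ± 55.7 CPM in lactate-cultured MHC-IIhi cells, against 3.45 ± 0.934 CPM in fresh ones (log2 fold change 6.53 ± 0.329 (SE), adjusted p = 2.1e-12), and to 203 ± 86.8 CPM in lactate-cultured MHC-IIlo cells, against 8.81 ± 1.53 CPM in fresh ones (log2 fold change 4.53 ± 0.296 (SE), adjusted p = 1.15e-10). The endothelial markers summed to 305.8 to 450 CPM in lactate-cultured and 96.51 to 136 CPM in fresh MHC-IIhi libraries, and 148.9 to 362.3 and 97.71 to 120.1 CPM in MHC-IIlo. Of the 4 markers of that list tested, 3 rose and 1 fell in MHC-IIhi, and 2 rose and 1 fell in MHC-IIlo. Vwf, the von Willebrand factor, rose in both subsets (log2 fold change 2.14 ± 0.268 and 3.06 ± 0.278), and Cdh5, the endothelial cadherin, rose in MHC-IIhi (log2 fold change 1.36 ± 0.285 (SE), adjusted p = 0.000384) and had 7.8 CPM in lactate-cultured and 12 CPM in fresh MHC-IIlo cells (adjusted p = 0.0615, and a fall called in 3 of the 20 fits that each left out 1 library). Tek and Emcn were at 0 in lactate-cultured cells and Pecam1 fell in both subsets (log2 fold change -1.61 ± 0.178 in MHC-IIhi and -3.21 ± 0.191 in MHC-IIlo). Without lactate, Kdr averaged 384.4 CPM in MHC-IIhi and 302.1 CPM in MHC-IIlo cells. The part of endothelial cells in the rise of Kdr was not tested.

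Interferon-stimulated genes rose almost without exception. They are the antiviral programme that type I interferon switches on through a transcription factor complex that holds IRF9 and binds the interferon-stimulated response element, and the promoters of 4 of them show the letters it reads. Each sequence gives the 150 bases before the transcription start of RefSeq, GRCm38.p6, 5′ to 3′ on the gene's strand, with matches in capitals to the core GAAA, 2 bases of any kind, GAAA, or to its reverse complement TTTC, 2 bases of any kind, TTTC, overlapping matches joined. The RefSeq start can differ from the start of the same gene in the count table's annotation.
Isg15, chr4:156200819-156200968, minus strand: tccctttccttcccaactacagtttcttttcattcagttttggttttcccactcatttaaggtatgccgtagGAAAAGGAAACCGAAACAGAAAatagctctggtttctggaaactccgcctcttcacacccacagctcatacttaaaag
Ifit1, chr19:34640739-34640888, plus strand: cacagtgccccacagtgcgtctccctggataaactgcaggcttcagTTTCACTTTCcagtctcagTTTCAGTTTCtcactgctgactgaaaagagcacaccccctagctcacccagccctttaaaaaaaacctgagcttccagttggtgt
Rsad2, chr12:26456453-26456602, minus strand: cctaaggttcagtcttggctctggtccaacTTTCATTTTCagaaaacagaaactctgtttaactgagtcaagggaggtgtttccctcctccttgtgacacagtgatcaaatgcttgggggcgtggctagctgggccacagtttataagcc
Gbp3, chr3:142559894-142560043, plus strand: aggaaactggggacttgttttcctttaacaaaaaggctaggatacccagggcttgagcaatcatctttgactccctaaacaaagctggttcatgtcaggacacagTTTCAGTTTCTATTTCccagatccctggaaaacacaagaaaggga

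Of the 32 genes on the list, 24 had a promoter in the RefSeq table, and 13 of these (54.2%) held the core on either strand within the 250 bases before the start, against 3.46% of 27025 promoters of all genes. Such a match is a description of the letters, not a measured binding site. By expression, 32 of the 32 rose in MHC-IIhi, 31 of them more than 2-fold (median log2 fold change 3.34), and 31 rose in MHC-IIlo, 29 more than 2-fold (median 2.82).

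Rsad2, which encodes the antiviral enzyme viperin (ENSMUSG00000020641, chr12:26442753-26456452, minus strand), had 3662, 2166, 4299, 2811 and 2420 CPM in lactate-cultured MHC-IIhi libraries, against 35.3, 24.6, 31.9, 46.2 and 50.2 CPM in fresh ones. It had 1162, 2142, 2928, 1458 and 2034 CPM in lactate-cultured MHC-IIlo libraries, against 59.5, 57.7, 58.6, 77.7 and 88.8 CPM in fresh ones. No cultured library overlapped a fresh one, and the rise was larger in MHC-IIhi (log2 fold change 6.35 ± 0.308 (SE), adjusted p = 1.21e-12, against log2 fold change 4.83 ± 0.286 (SE), adjusted p = 2.67e-11 in MHC-IIlo, a log2 difference of -1.52 ± 0.348 (SE), adjusted p = 0.00682). Irf7, the transcription factor that amplifies interferon production (ENSMUSG00000025498, chr7:141262706-141266481, minus strand), had 4003, 2792, 3077, 2544 and 2135 CPM in lactate-cultured MHC-IIhi libraries, against 99.3, 73.4, 93.8, 132 and 115 CPM in fresh ones. It had 2948, 3408, 3841, 1308 and 2683 CPM in lactate-cultured MHC-IIlo libraries, against 153, 152, 147, 173 and 198 CPM in fresh ones. It rose in both subsets (log2 fold change 4.83 ± 0.264 (SE), adjusted p = 6.85e-12 in MHC-IIhi, and log2 fold change 4.11 ± 0.255 (SE), adjusted p = 5.26e-11 in MHC-IIlo). Isg15, a ubiquitin-like modifier, averaged 619 ± 224 CPM in lactate-cultured and 31.7 ± 6.54 CPM in fresh MHC-IIhi cells, and 469.7 ± 143 and 27.5 ± 5.39 CPM in MHC-IIlo. Ifit1, which binds foreign RNA caps, had log2 fold changes of 5.39 ± 0.232 and 4.84 ± 0.226, and Gbp3, a guanylate-binding protein, of 3.80 ± 0.18 and 3.56 ± 0.178.

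The list included a factor of the pathway itself. Irf9 rose more than 2-fold in both subsets (log2 fold change 1.36 ± 0.113 in MHC-IIhi and 1.51 ± 0.114 in MHC-IIlo). The 1 gene that fell was Irf8, a lineage factor of dendritic cells and monocytes, in MHC-IIlo (log2 fold change -0.64 ± 0.175 (SE), adjusted p = 0.00414), and it rose in MHC-IIhi (log2 fold change 0.67 ± 0.175 (SE), adjusted p = 0.00275). Of the list, 0 had a more positive and 10 a more negative change in MHC-IIlo than in MHC-IIhi, among them Cxcl10 (log2 difference -1.73 ± 0.402 (SE), adjusted p = 0.00795), Oasl1 (log2 difference -1.40 ± 0.377 (SE), adjusted p = 0.0184) and Gbp5 (log2 difference -1.48 ± 0.332 (SE), adjusted p = 0.00595). For all tested genes these shares were 5.09% and 7.23%. Without lactate, Rsad2 had 3868 ± 1044 CPM in no-lactate MHC-IIhi and 2086 ± 175 CPM in no-lactate MHC-IIlo cells, and none of the 32 genes differed between lactate and no-lactate at an adjusted p under 0.05. Their median log2 difference, lactate over no-lactate, was -0.24 in MHC-IIhi (range -0.72 to 0.17). In MHC-IIlo it was -0.36, and every member was lower with lactate (range -1.05 to -0.05). Members of the Ifit, Oas and Gbp families lie in clusters of similar copies, so the split of reads between neighbours such as Ifit3 and Ifit3b is uncertain.

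Immediate early genes, the transcription factors and feedback genes that stimulation switches on within minutes, were high in fresh cells and low after culture. Of 25, 20 fell in MHC-IIhi and 23 in MHC-IIlo, 16 and 18 more than 2-fold, and none rose (median log2 fold change -2.86 and -3.21). Fosb, a subunit of the AP-1 factor (ENSMUSG00000003545, chr7:19302721-19310045, minus strand), had 0.848, 1.21, 0.748, 1.74 and 1.17 CPM in lactate-cultured MHC-IIhi libraries, against 547, 362, 557, 1313 and 1398 CPM in fresh ones. It had 1.16, 0.778, 0.962, 1.67 and 0.999 CPM in lactate-cultured MHC-IIlo libraries, against 580.4, 391.5, 587, 1396 and 1346 CPM in fresh ones. Cultured cells were near 1 CPM throughout, and fresh libraries spread over a wide range (log2 fold change -9.52 ± 0.537 (SE), adjusted p = 1.05e-11 in MHC-IIhi, and log2 fold change -9.59 ± 0.536 (SE), adjusted p = 1.23e-11 in MHC-IIlo). Nr4a1, an orphan nuclear receptor induced with the AP-1 genes (ENSMUSG00000023034, chr15:101266846-101274792, plus strand), had 8.04, 4.78, 3.31, 6.47 and 4.89 CPM in lactate-cultured MHC-IIhi libraries, against 560, 562, 704, 1338 and 1299 CPM in fresh ones. It had 4.93, 2.64, 2.69, 4.97 and 3.96 CPM in lactate-cultured MHC-IIlo libraries, against 297, 268, 353, 741 and 478 CPM in fresh ones. The log2 fold change was -7.33 ± 0.402 in MHC-IIhi and -6.80 ± 0.395 in MHC-IIlo. Fos and Egr1 fell too, with log2 fold changes of -5.67 ± 0.332 and -7.06 ± 0.214 in MHC-IIhi and -5.89 ± 0.336 and -7.27 ± 0.218 in MHC-IIlo. Fosb and Nr4a1 were highest in fresh libraries 4 and 5 of both subsets. All fresh cells were measured after sorting, so levels inside the tumour and changes during sorting cannot be told apart.

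Within the list, Atf3 and Fosl1 did not pass the test in either subset, and Ier5 was kept within 2-fold in both. Nr4a3, the relative of Nr4a1, differed between the subsets: it averaged 29.9 ± 9.87 CPM in lactate-cultured and 29 ± 21.4 CPM in fresh MHC-IIhi cells, and 0.358 ± 0.273 and 8.11 ± 8.09 CPM in MHC-IIlo, a log2 difference of -4.54 ± 0.926 (SE), adjusted p = 0.00297. Zfp36 and Dusp1, which end inflammatory mRNA and kinase signals, had log2 fold changes of -3.44 ± 0.207 and -2.86 ± 0.29 in MHC-IIhi and -4.47 ± 0.217 and -3.76 ± 0.302 in MHC-IIlo. The inducible heat shock genes Hspa1a and Hspa1b, near-identical copies whose reads cannot be split with certainty, fell with them (log2 fold change -4.04 ± 0.296 and -3.50 ± 0.263 in MHC-IIhi, and -3.54 ± 0.286 and -3.13 ± 0.259 in MHC-IIlo).

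Inflammatory cytokine genes mostly rose in MHC-IIhi, while Osm and Il1b fell in both subsets. Of 19 inflammatory cytokines and enzymes, 12 rose and 3 fell in MHC-IIhi, and 6 rose and 5 fell in MHC-IIlo. Over all tested genes, 28.7% rose and 29.1% fell in MHC-IIhi, and 25.8% and 27.4% in MHC-IIlo, so the MHC-IIlo counts are near the background. The change was more negative in MHC-IIlo than in MHC-IIhi for 7 of the 19, and for 7.23% of all tested genes. The 6 that rose in MHC-IIlo were 3 without lactate-cultured MHC-IIlo 4, lactate-cultured MHC-IIlo 5 or fresh MHC-IIlo 1. Il1b, interleukin-1 beta (ENSMUSG00000027398, chr2:129364570-129371139, minus strand), had 332, 301, 319, 370.4 and 733 CPM in lactate-cultured MHC-IIhi libraries, against 1489, 1443, 1528, 2640 and 2655 CPM in fresh ones. It had 16.6, 9.92, 8.71, 129 and 9.43 CPM in lactate-cultured MHC-IIlo libraries, against 578, 685, 677, 1247 and 864 CPM in fresh ones. The groups did not overlap in either subset, and lactate-cultured MHC-IIlo 5 lay far above the other 4 of its group. The log2 fold change was -2.25 ± 0.597 (SE), adjusted p = 0.00306 in MHC-IIhi and -4.54 ± 0.662 (SE), adjusted p = 8.17e-06 in MHC-IIlo. The difference between them was -2.30 ± 0.819 (SE), adjusted p = 0.0712, and without that library it was -3.94 (adjusted p = 5.79e-06). In MHC-IIlo the level was higher with lactate than without, where it was 5.04 ± 2.47 CPM (log2 difference 2.79 ± 0.669 (SE), adjusted p = 0.0413, a call lost in 10 of the 20 fits without 1 library, at 1.15 to 3.03).

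Osm, oncostatin M, a relative of interleukin-6, fell, with log2 fold changes of -4.40 ± 0.396 in MHC-IIhi and -4.34 ± 0.394 in MHC-IIlo. Il1rn, the antagonist of interleukin-1, rose in both (log2 fold change 1.47 ± 0.254 and 1.90 ± 0.258), as did Csf1, the growth factor of macrophages themselves (log2 fold change 2.38 ± 0.263 and 2.39 ± 0.263). Il12b, the shared chain of the interleukins that drive Th1 and Th17 responses, rose in MHC-IIhi to 16.5 ± 6.24 CPM, against 0.579 ± 0.855 CPM in fresh cells (log2 fold change 4.78 ± 0.644 (SE), adjusted p = 2.34e-06), and stood at 0.0543 and 0.1 CPM in MHC-IIlo. Tnf was kept in MHC-IIhi, at 65.1 ± 17.5 and 58.3 ± 23.6 CPM, and did not pass the test in MHC-IIlo. Among 18 regulators and targets of the inflammatory factor NF-kB, 10 rose and 3 fell in MHC-IIhi, and 4 rose and 8 fell in MHC-IIlo. Sod2, the mitochondrial superoxide dismutase, rose, with log2 fold changes of 2.49 ± 0.133 in MHC-IIhi and 1.01 ± 0.127 in MHC-IIlo, a log2 difference of -1.49 ± 0.179 (SE), adjusted p = 2.93e-05. Of 13 genes of Toll-like receptor sensing, 8 rose and 2 fell in MHC-IIhi, and 4 rose and 4 fell in MHC-IIlo. Over all tested genes, 28.7% rose and 29.1% fell in MHC-IIhi, and 25.8% and 27.4% in MHC-IIlo. The Toll-like receptor counts in MHC-IIlo are near this background. Cd14, the co-receptor for lipopolysaccharide, fell in both (log2 fold change -1.05 ± 0.246 and -2.12 ± 0.254) and was higher with lactate than without in MHC-IIlo (log2 difference 1.39 ± 0.247 (SE), adjusted p = 0.00821).

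Most CC chemokines fell, and the T cell attractant Ccl5 rose. Of 11 CC chemokines, 9 fell and 1 rose in MHC-IIhi, and 10 fell and none rose in MHC-IIlo. Ccl6, among the most abundant protein-coding transcripts of fresh cells, averaged 184 ± 68.9 CPM in lactate-cultured and 5215 ± 964 CPM in fresh MHC-IIhi cells (log2 fold change -4.82 ± 0.317 (SE), adjusted p = 8.53e-11), and 915 ± 344 and 8531 ± 1034 CPM in MHC-IIlo (log2 fold change -3.22 ± 0.294 (SE), adjusted p = 1.5e-08). Ccl7, a monocyte attractant, fell, with log2 fold changes of -1.65 ± 0.293 and -2.10 ± 0.297, and Ccl2, its neighbour, fell in MHC-IIlo (log2 fold change -1.07 ± 0.262) and missed the threshold in MHC-IIhi (log2 fold change -0.55 ± 0.26 (SE), adjusted p = 0.0759). Ccl5, which attracts T cells (ENSMUSG00000035042, chr11:83525778-83530518, minus strand), had 539, 560.1, 972, 389 and 700.2 CPM in lactate-cultured MHC-IIhi libraries, against 5.89, 4.59, 7.37, 7.41 and 4.2 CPM in fresh ones. It had 372, 727, 1253, 98 and 561 CPM in lactate-cultured MHC-IIlo libraries, against 3.65, 3.76, 2.73, 3.5 and 5.51 CPM in fresh ones. The log2 fold change was 6.74 ± 0.517 in MHC-IIhi and 7.30 ± 0.533 in MHC-IIlo. Of the 5 T cell chemokines, Cxcl10, Cxcl11 and Cxcl16 rose too in both subsets and Cxcl9 fell in both (log2 fold change -3.16 ± 0.438 and -2.25 ± 0.414).

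Ccr7 and Ccl22, genes of maturing antigen-presenting cells, rose in MHC-IIhi. In MHC-IIlo every value of both genes was 1.95 CPM or less, near the floor, and their lower levels after culture rest on such values. Ccr7, the receptor that leads cells to lymph nodes (ENSMUSG00000037944, chr11:99144196-99155077, minus strand), had 218, 89, 75.3, 115 and 129 CPM in lactate-cultured MHC-IIhi libraries, against 5.62, 1.99, 9.26, 5.97 and 2.51 CPM in fresh ones. It had 0.133, 0.305, 0.0481, 0 and 0.16 CPM in lactate-cultured MHC-IIlo libraries, against 1.37, 1.37, 0.607, 0.471 and 0.159 CPM in fresh ones. The log2 fold change was 4.62 ± 0.412 (SE), adjusted p = 7.27e-09 in MHC-IIhi and -2.46 ± 0.793 (SE), adjusted p = 0.013 in MHC-IIlo, a log2 difference of -7.08 ± 0.856 (SE), adjusted p = 2.93e-05. Ccl22, a chemokine that attracts regulatory T cells (ENSMUSG00000031779, chr8:94745590-94751699, plus strand), had 300.1, 201, 127, 241 and 261 CPM in lactate-cultured MHC-IIhi libraries, against 22.6, 9.74, 24.8, 11 and 6.35 CPM in fresh ones. It had 0.533, 0.338, 0.144, 0.585 and 0.400 CPM in lactate-cultured MHC-IIlo libraries, against 1.48, 1.85, 1.95, 0.68 and 0.477 CPM in fresh ones. In MHC-IIhi the groups of both genes stood apart, and in MHC-IIlo they overlapped. The difference between the changes of Ccl22 was -5.61 ± 0.635 (SE), adjusted p = 1.37e-05. Both genes reached the average level asked of named genes only through lactate-cultured MHC-IIhi cells. Ccr7 is itself 1 of the 10 dendritic cell markers and, at a mean of 125 CPM, the most abundant of them in lactate-cultured MHC-IIhi cells. Of the 7 markers tested, 3 rose and 3 fell in MHC-IIhi, and none rose and 3 fell in MHC-IIlo. The summed level of the list, Ccr7 included, was 98.72 to 289.4 CPM in lactate-cultured MHC-IIhi and 1.422 to 2.922 CPM in lactate-cultured MHC-IIlo libraries, against 23.71 to 43.7 CPM in fresh MHC-IIhi and 4.287 to 6.342 CPM in fresh MHC-IIlo libraries. Of the 10 markers, Flt3 and Kit rose with Ccr7 in MHC-IIhi (log2 fold change 3.35 ± 0.47 and 2.25 ± 0.382), Zbtb46 had 6.72 CPM in lactate-cultured and 4.13 CPM in fresh cells (adjusted p = 0.103), Cd209a fell to 0.033 CPM, against 12.5 CPM, and Siglech was at 0 in lactate-cultured libraries. Their part in the result was not tested.

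Neutrophil-attracting chemokines moved differently in the subsets: of 6, 3 rose and 1 fell in MHC-IIhi, and 0 rose and 4 fell in MHC-IIlo. Cxcl3 (ENSMUSG00000029379, chr5:90786103-90789600, plus strand) had 1140, 1524, 1513, 1608 and 2232 CPM in lactate-cultured MHC-IIhi libraries, against 328, 112, 202, 371 and 375 CPM in fresh ones. It had 375, 323, 239.9, 858 and 342 CPM in lactate-cultured MHC-IIlo libraries, against 858, 579.9, 527, 1123 and 929 CPM in fresh ones. It rose in MHC-IIhi (log2 fold change 2.53 ± 0.352 (SE), adjusted p = 3.42e-06), and in MHC-IIlo, where library 5 was the highest cultured value, the call was log2 fold change -0.91 ± 0.335 (SE), adjusted p = 0.0278 and was lost in 6 of the 20 fits that each left out 1 library. The log2 difference was -3.44 ± 0.483 (SE), adjusted p = 0.000113. In MHC-IIlo the level was higher with lactate than without, where it was 97.6 ± 35.9 CPM (log2 difference 2.14 ± 0.305 (SE), adjusted p = 0.00348). Ppbp, a platelet-type chemokine, fell in both subsets, with log2 fold changes of -3.79 ± 0.399 in MHC-IIhi and -4.25 ± 0.405 in MHC-IIlo.

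Arg1 and Nos2, enzymes that use arginine, moved differently. Arg1, arginase, which makes ornithine and urea (ENSMUSG00000019987, chr10:24915208-24927470, minus strand), had 1457, 2572, 1799, 2454 and 1803 CPM in lactate-cultured MHC-IIhi libraries, against 1956, 1175, 1929, 2864 and 2237 CPM in fresh ones. It had 628, 988, 569, 324 and 583 CPM in lactate-cultured MHC-IIlo libraries, against 3806, 3127, 3917, 4925 and 3575 CPM in fresh ones. In MHC-IIhi the groups overlapped and the gene was kept (95% interval -0.52 to 0.51), and in MHC-IIlo it fell (log2 fold change -2.64 ± 0.264 (SE), adjusted p = 5.49e-08), a log2 difference of -2.64 ± 0.357 (SE), adjusted p = 7.71e-05. Nos2, the inducible nitric oxide synthase that competes for the same arginine (ENSMUSG00000020826, chr11:78920787-78960254, plus strand), had 1406, 2009, 2500, 2429 and 3664 CPM in lactate-cultured MHC-IIhi libraries, against 33.2, 29.1, 20.6, 37.4 and 34.2 CPM in fresh ones. It had 146, 547, 829, 728 and 489 CPM in lactate-cultured MHC-IIlo libraries, against 21.6, 43.7, 25.3, 48.7 and 28.6 CPM in fresh ones. It rose in both subsets, further in MHC-IIhi (log2 fold change 6.28 ± 0.422 (SE), adjusted p = 1.2e-10, against log2 fold change 4.03 ± 0.38 (SE), adjusted p = 2.43e-08 in MHC-IIlo, a log2 difference of -2.25 ± 0.483 (SE), adjusted p = 0.00435). In MHC-IIlo its level was higher with lactate than without, where it was 205 ± 58.9 CPM (log2 difference 1.42 ± 0.338 (SE), adjusted p = 0.0401, a call lost in 13 of the 20 fits without 1 library, at 1.22 to 1.55). Arg2, the mitochondrial arginase, rose in MHC-IIhi (log2 fold change 2.65 ± 0.286 (SE), adjusted p = 1.18e-07), and in MHC-IIlo the call (log2 fold change 0.72 ± 0.271 (SE), adjusted p = 0.0307) was lost in 5 of the 20 fits that each left out 1 library. Ass1, which rebuilds arginine from citrulline, rose, with log2 fold changes of 2.54 ± 0.256 and 1.60 ± 0.259. Over the 18 genes of the list, 8 rose and 6 fell in MHC-IIhi, and 6 rose and 5 fell in MHC-IIlo. Over all tested genes, 28.7% rose and 29.1% fell in MHC-IIhi, and 25.8% and 27.4% in MHC-IIlo, so the MHC-IIlo counts are near the background.

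Irg1, also named Acod1, the enzyme that turns a citric acid cycle intermediate into itaconate (ENSMUSG00000022126, chr14:103046977-103056573, plus strand), had 1688, 1102, 1120, 1065 and 932 CPM in lactate-cultured MHC-IIhi libraries, against 9.82, 5.09, 8.22, 10.1 and 9.27 CPM in fresh ones. It had 427, 469.9, 492, 356 and 406 CPM in lactate-cultured MHC-IIlo libraries, against 13.5, 12.7, 15.2, 15.1 and 24.9 CPM in fresh ones. The rise was larger in MHC-IIhi (log2 fold change 7.12 ± 0.253 (SE), adjusted p = 3.17e-14, against log2 fold change 4.73 ± 0.226 (SE), adjusted p = 2.22e-12 in MHC-IIlo, a log2 difference of -2.39 ± 0.282 (SE), adjusted p = 2.44e-05). Most enzymes of the cycle stayed within 2-fold: of the 23 genes of this list, Irg1 included, 16 fell in MHC-IIhi and 12 in MHC-IIlo, and 16 and 19 were kept within 2-fold.

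**Figure D3:**
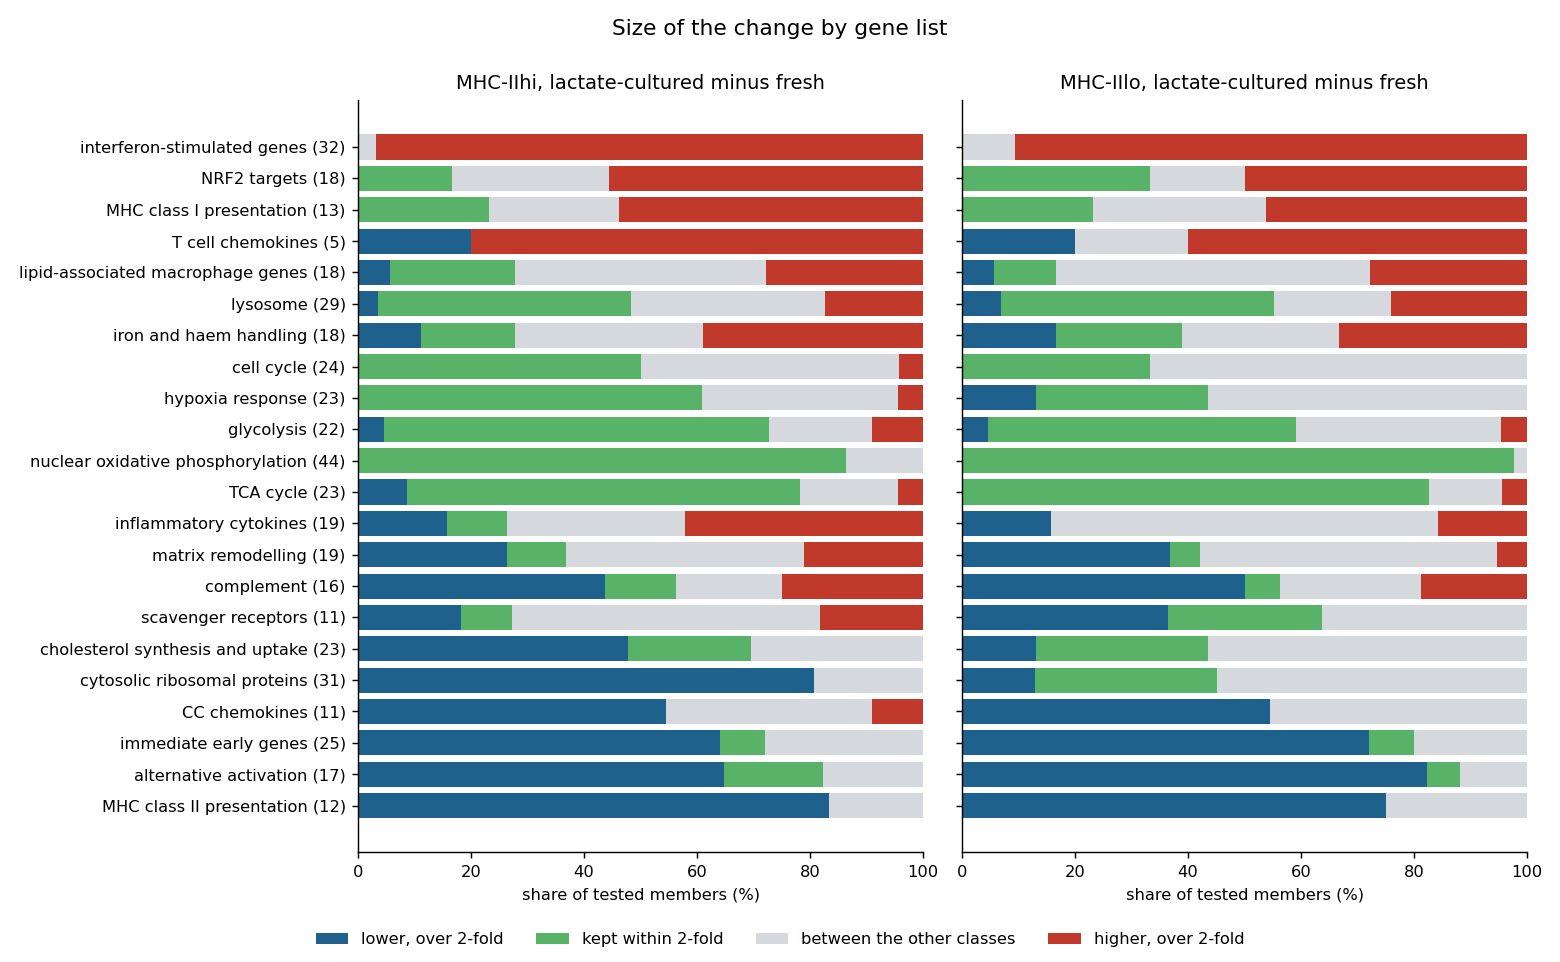
Share of the tested members of the gene lists named on the axis (number tested in brackets) that were more than 2-fold lower (blue), kept within 2-fold (green), between these classes (grey) or more than 2-fold higher (red) in lactate-cultured over fresh cells of each subset. Interferon-stimulated genes are nearly all red, MHC class II and alternative activation mostly blue, and nuclear oxidative phosphorylation mostly green in both subsets.

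The change of 13 of 23 hypoxia response genes was more negative in MHC-IIlo than in MHC-IIhi, as it was for 7.23% of all tested genes. Such genes are switched on when low oxygen stabilises HIF, which binds the core ACGTG, and several of them encode glycolytic enzymes. The promoters of Bnip3, Ldha and Pgk1 are shown as above, with ACGTG or its reverse complement CACGT in capitals and overlapping matches joined. The RefSeq start can differ from the start of the same gene in the count table's annotation.
Bnip3, chr7:138909507-138909656, minus strand: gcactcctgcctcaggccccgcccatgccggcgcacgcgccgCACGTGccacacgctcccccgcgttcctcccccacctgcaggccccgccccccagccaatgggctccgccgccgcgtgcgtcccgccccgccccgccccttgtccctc
Ldha, chr7:46845654-46845803, plus strand: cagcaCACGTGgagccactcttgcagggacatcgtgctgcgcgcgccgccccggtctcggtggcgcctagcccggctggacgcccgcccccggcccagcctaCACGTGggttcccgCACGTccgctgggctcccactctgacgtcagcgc
Pgk1, chrX:106186950-106187099, plus strand: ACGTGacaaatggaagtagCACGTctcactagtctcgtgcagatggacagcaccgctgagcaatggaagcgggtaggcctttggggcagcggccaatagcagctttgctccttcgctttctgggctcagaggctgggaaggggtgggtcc

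Within the 250 bases before the start, 14 of 19 hypoxia response genes with a promoter in the table (73.7%) and 11 of 21 glycolysis genes (52.4%) held the core on either strand, against 18.5% of all 27025 promoters. Of 23 hypoxia response genes, 7 rose, 2 fell and 14 were kept in MHC-IIhi (median log2 fold change 0.02), and 0 rose, 15 fell and 7 were kept in MHC-IIlo (median -0.95). Of all tested genes, 51.2% were kept in MHC-IIhi and 54.2% in MHC-IIlo. Without lactate-cultured MHC-IIlo 5, 2 rose in MHC-IIlo. The change was more negative in MHC-IIlo for 13 of them and more positive for 1, Bhlhe40.

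Bnip3, a mitophagy receptor (ENSMUSG00000078566, chr7:138890836-138909519, minus strand), had 76, 140, 217, 150.4 and 256 CPM in lactate-cultured MHC-IIhi libraries, against 91.2, 74.6, 91.3, 122 and 105 CPM in fresh ones. It had 42, 55.4, 71.7, 62.9 and 53.9 CPM in lactate-cultured MHC-IIlo libraries, against 124, 115, 117.1, 187 and 144 CPM in fresh ones. It rose in MHC-IIhi (log2 fold change 0.80 ± 0.235 (SE), adjusted p = 0.0064) and fell in MHC-IIlo (log2 fold change -1.27 ± 0.238 (SE), adjusted p = 0.000146), a log2 difference of -2.07 ± 0.334 (SE), adjusted p = 0.000423. Pdk1, the kinase that closes pyruvate dehydrogenase (ENSMUSG00000006494, chr2:71873224-71903858, plus strand), had 66.8, 109, 121, 122 and 149 CPM in lactate-cultured MHC-IIhi libraries, against 134, 129, 132, 148 and 135 CPM in fresh ones. It had 44.7, 52.3, 50.5, 64 and 54.8 CPM in lactate-cultured MHC-IIlo libraries, against 133, 142, 144, 153 and 132 CPM in fresh ones. It was kept in MHC-IIhi (95% interval -0.55 to 0.04) and fell in MHC-IIlo (log2 fold change -1.40 ± 0.144 (SE), adjusted p = 8.86e-08), a log2 difference of -1.15 ± 0.201 (SE), adjusted p = 0.000849. Vegfa, the blood vessel growth factor (ENSMUSG00000023951, chr17:46016993-46032377, minus strand), had 103, 155, 197, 206 and 315 CPM in lactate-cultured MHC-IIhi libraries, against 234, 169.5, 267, 564 and 491 CPM in fresh ones. It had 64, 78.9, 101, 141 and 81.2 CPM in lactate-cultured MHC-IIlo libraries, against 264, 227, 293, 658 and 432 CPM in fresh ones. It fell in MHC-IIlo (log2 fold change -2.01 ± 0.358 (SE), adjusted p = 8.37e-05), and in MHC-IIhi the call (log2 fold change -0.82 ± 0.347 (SE), adjusted p = 0.0487) was lost in 12 of the 20 fits that each left out 1 library. The difference between the 2 changes did not pass the test (log2 difference -1.19 ± 0.489 (SE), adjusted p = 0.121).

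Ldha, the enzyme that makes lactate from pyruvate (ENSMUSG00000063229, chr7:46841475-46855627, plus strand), had 1766, 2384, 2615, 2028 and 2502 CPM in lactate-cultured MHC-IIhi libraries, against 1563, 1517, 1683, 1958 and 1606 CPM in fresh ones. It had 1504, 1857, 2049, 1390 and 1518 CPM in lactate-cultured MHC-IIlo libraries, against 1653, 1544, 1621, 1844 and 1560 CPM in fresh ones. Ldha was kept in both subsets. In MHC-IIhi it rose within 2-fold (log2 fold change 0.44 ± 0.134 (SE), adjusted p = 0.00791), and in MHC-IIlo its 95% interval was -0.26 to 0.30. Pgk1, which makes ATP in glycolysis, was kept in MHC-IIhi, with 415 ± 104 CPM in lactate-cultured and 351 ± 38.7 CPM in fresh cells, and fell in MHC-IIlo to 205 ± 27.7 CPM, against 315 ± 31.2 CPM in fresh cells, a log2 difference of -0.86 ± 0.204 (SE), adjusted p = 0.00859. In MHC-IIlo the mean without lactate was lower still, at 127 ± 17.7 CPM. Among 22 glycolysis genes, 6 rose, 5 fell and 15 were kept in MHC-IIhi, and 1 rose, 10 fell and 12 were kept in MHC-IIlo. Over all tested genes, 28.7% rose and 29.1% fell in MHC-IIhi, so the MHC-IIhi shares of risers and fallers are near the background, and 25.8% rose and 27.4% fell in MHC-IIlo. Pfkfb3, which makes the activator of the committed step, rose in MHC-IIhi to 467 ± 107 CPM, against 85.9 ± 22.7 CPM in fresh cells (log2 fold change 2.45 ± 0.206 (SE), adjusted p = 3.23e-09), and was kept in MHC-IIlo, a log2 difference of -2.20 ± 0.28 (SE), adjusted p = 4.19e-05. Hk3, a hexokinase of myeloid cells, rose more than 2-fold in both subsets, and Aldoc, an aldolase isoform, fell more than 2-fold in both.

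**Figure D4:**
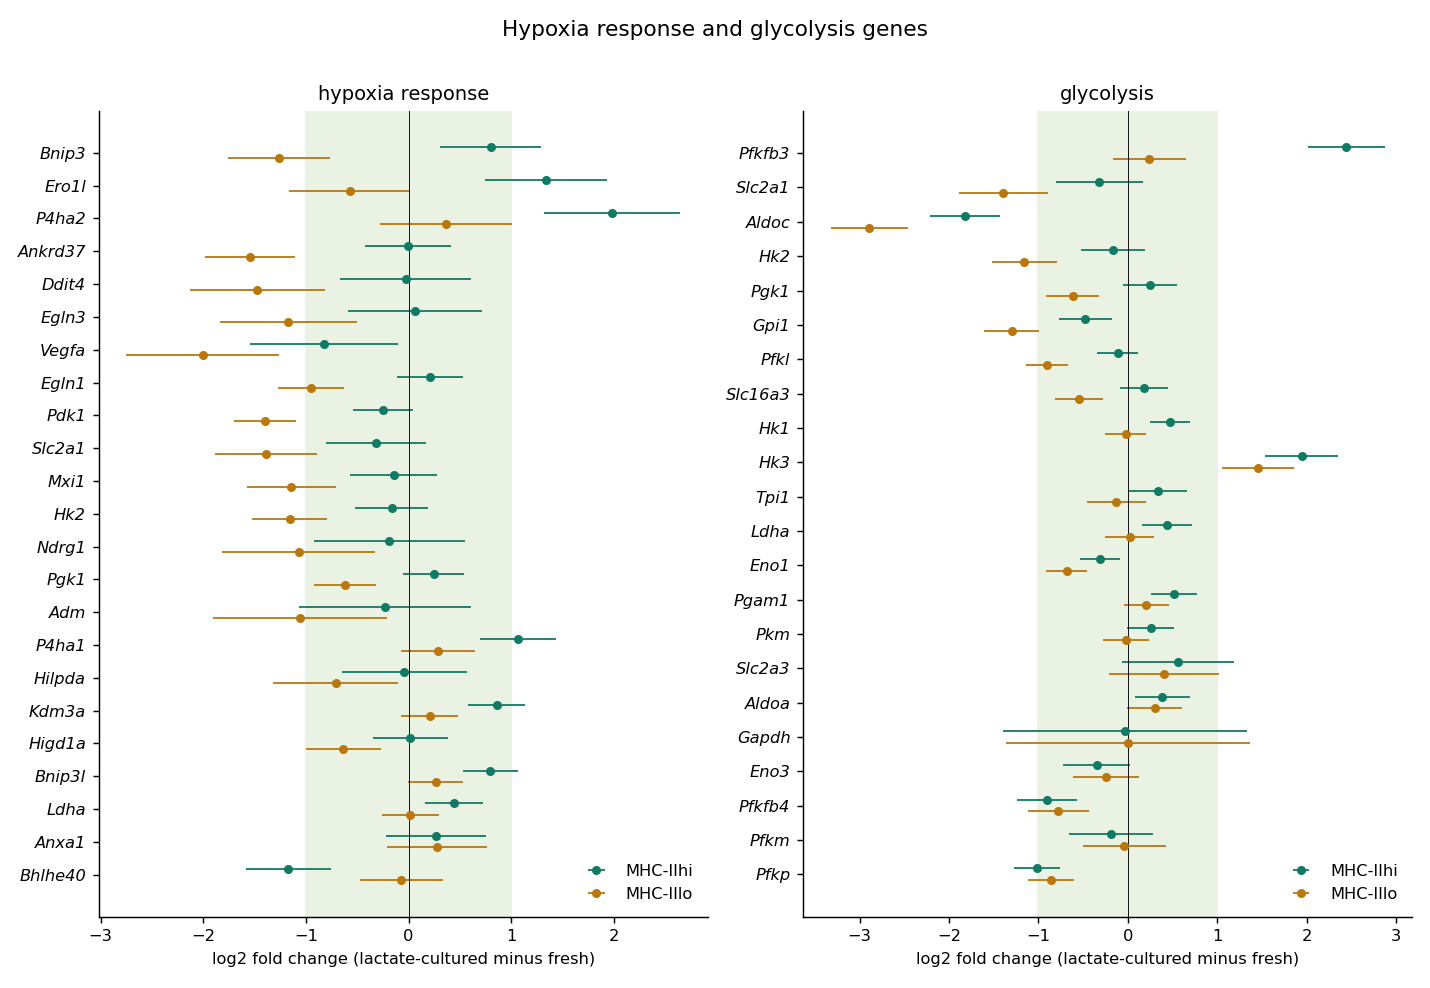
Log2 fold change (lactate-cultured over fresh, x axis) with its 95% interval for each tested hypoxia response (left) and glycolysis (right) gene in MHC-IIhi (green) and MHC-IIlo (brown), with the range of -1 to 1 shaded. Bnip3, Pdk1, Ankrd37 and Pgk1 lie further to the left in MHC-IIlo than in MHC-IIhi, and most glycolysis intervals of MHC-IIhi lie inside the shaded range.

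Carriers and sensors of lactate were called about as often as genes at large in MHC-IIhi. Of 16 genes, 5 rose and 5 fell in MHC-IIhi, and 4 rose and 8 fell in MHC-IIlo, where 2 rose without lactate-cultured MHC-IIlo 5. Of all tested genes, 28.7% rose and 29.1% fell in MHC-IIhi, and 25.8% and 27.4% in MHC-IIlo. Slc16a3, the monocarboxylate transporter that exports lactate (ENSMUSG00000025161, chr11:120948480-120960868, plus strand), had 546, 710.4, 849.9, 664 and 879.6 CPM in lactate-cultured MHC-IIhi libraries, against 578, 590.3, 648, 794 and 617 CPM in fresh ones. It had 316, 392.2, 361, 333 and 295 CPM in lactate-cultured MHC-IIlo libraries, against 486, 475, 500.3, 564 and 454 CPM in fresh ones. Slc16a3 was kept in both subsets. Its 95% interval was -0.09 to 0.45 in MHC-IIhi, and in MHC-IIlo it fell within 2-fold (log2 fold change -0.54 ± 0.129 (SE), adjusted p = 0.0014), a log2 difference of -0.72 ± 0.182 (SE), adjusted p = 0.0126. In MHC-IIlo it was higher with lactate than without, where it was 199 ± 38.8 CPM (log2 difference 0.77 ± 0.184 (SE), adjusted p = 0.0401, a call lost in 11 of the 20 fits without 1 library, at 0.68 to 0.82). Slc16a6, a related carrier, fell in both subsets and was lower with lactate than without in each, at 22.6 ± 3.88 and 46.5 ± 7.52 CPM in MHC-IIhi (log2 difference -1.04 ± 0.154 (SE), adjusted p = 0.00335) and 45.4 ± 5.33 and 73.3 ± 15.1 CPM in MHC-IIlo (log2 difference -0.69 ± 0.151 (SE), adjusted p = 0.0267, a call lost in 6 of the 20 fits without 1 library, at -0.70 to -0.62). Gpr132, a proton-sensing receptor, fell in both subsets (log2 fold change -1.37 ± 0.21 and -2.67 ± 0.224).

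Slc6a12, a gene that differed with lactate in both subsets, is the betaine carrier that cells use to balance salt and water (ENSMUSG00000030109, chr6:121343076-121365775, plus strand). It had 40, 44.2, 15.1, 23.3 and 45.8 CPM in lactate-cultured MHC-IIhi libraries, against 0.491, 0.388, 0.236, 0 and 0.154 CPM in fresh ones. It had 9.87, 5.11, 8.03, 10.7 and 12.6 CPM in lactate-cultured MHC-IIlo libraries, against 0.114, 0.293, 0.303, 0.209 and 0.265 CPM in fresh ones. Cells cultured without lactate had 3.72, 4.41, 2.97, 9.8 and 7.9 CPM in MHC-IIhi and 1.19, 0.759, 0.800, 0.293 and 1.96 CPM in MHC-IIlo, below every lactate-cultured library. The log2 fold change over fresh was 7.05 ± 0.447 (SE), adjusted p = 5.12e-11 in MHC-IIhi and 5.23 ± 0.442 (SE), adjusted p = 5e-09 in MHC-IIlo, and that over no-lactate was 2.56 ± 0.383 (SE), adjusted p = 0.00335 in MHC-IIhi and 3.19 ± 0.429 (SE), adjusted p = 0.00209 in MHC-IIlo. Sodium lactate adds sodium as well as lactate, and no group of the study received sodium alone, so the 2 cannot be told apart. Of 10 osmolyte genes, 6 rose and 3 fell in MHC-IIhi, and 4 rose and 2 fell in MHC-IIlo. The shares of all tested genes that rose and fell were 28.7% and 29.1% in MHC-IIhi, and 25.8% and 27.4% in MHC-IIlo.

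Targets of NRF2, the factor that answers oxidative and electrophile stress, rose together. All 18 of the 18 rose in MHC-IIhi and 16 in MHC-IIlo, 10 and 9 of them more than 2-fold, and none fell (median log2 fold change 1.74 and 1.40). The antioxidant response element core (TGAC, 3 bases of any kind, GC, or its reverse complement GC, 3 bases of any kind, GTCA) lay within 250 bases before the start in 5 of 15 NRF2 target promoters (33.3%), against 11.5% of all promoters. That of Prdx1 is shown with the match in capitals.
Prdx1, chr4:116685449-116685598, plus strand: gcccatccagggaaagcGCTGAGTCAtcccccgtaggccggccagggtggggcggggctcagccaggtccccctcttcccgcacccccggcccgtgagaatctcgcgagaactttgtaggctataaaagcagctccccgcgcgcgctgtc

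Prdx1, a peroxidase that removes hydrogen peroxide (ENSMUSG00000028691, chr4:116685544-116700822, plus strand), had 3487, 4143, 5190, 2895 and 3725 CPM in lactate-cultured MHC-IIhi libraries, against 547, 485, 563, 648 and 624 CPM in fresh ones. It had 2916, 3999, 5043, 1192 and 3364 CPM in lactate-cultured MHC-IIlo libraries, against 648, 583, 586, 660 and 749 CPM in fresh ones. The groups were far apart (log2 fold change 2.77 ± 0.262 (SE), adjusted p = 1.79e-08 in MHC-IIhi, and log2 fold change 2.36 ± 0.258 (SE), adjusted p = 1.94e-07 in MHC-IIlo). Srxn1, which repairs the oxidised enzyme, had log2 fold changes of 1.90 ± 0.168 and 2.13 ± 0.17, and Slc7a11, the cystine importer, of 2.08 ± 0.314 and 1.34 ± 0.309. Slc7a11 was higher with lactate than without in MHC-IIlo, at 113 ± 67.4 and 40.4 ± 4.84 CPM (log2 difference 1.49 ± 0.312 (SE), adjusted p = 0.0235, a call lost in 5 of the 20 fits without 1 library, at 1.45 to 1.52). Fth1, the heavy chain of ferritin, which stores iron (ENSMUSG00000024661, chr19:9982703-9985092, plus strand), had 29440, 26260, 27430, 21820 and 21960 CPM in lactate-cultured MHC-IIhi libraries, against 3997, 2699, 3256, 5139 and 4932 CPM in fresh ones. It had 27100, 30370, 33670, 12340 and 25010 CPM in lactate-cultured MHC-IIlo libraries, against 5433, 4050, 4016, 6020 and 6966 CPM in fresh ones. It rose in both subsets (log2 fold change 2.67 ± 0.262 (SE), adjusted p = 3.02e-08 in MHC-IIhi, and log2 fold change 2.28 ± 0.258 (SE), adjusted p = 3.07e-07 in MHC-IIlo), with reads that processed pseudogenes of Fth1 could share. Of 18 genes of iron and haem handling, 12 rose and 3 fell in MHC-IIhi, and 10 rose and 5 fell in MHC-IIlo, where 3 fell without fresh MHC-IIlo 4. Hmox1, haem oxygenase, rose in MHC-IIhi (log2 fold change 1.46 ± 0.341 (SE), adjusted p = 0.00102) and was kept in MHC-IIlo (0.03, 95% interval -0.66 to 0.73). The difference between its 2 changes did not pass the test in the fit reported. It passed in 6 of the 20 fits that each left out 1 library (log2 difference -1.66 to -1.52).

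Mitochondrial respiration genes of the nucleus were mostly kept. Of 44 subunits of the respiratory chain, 38 were kept within 2-fold in MHC-IIhi and 43 in MHC-IIlo, although 32 and 14 of them fell by small amounts (median log2 fold change -0.43 and -0.20). In MHC-IIlo 9 fell without fresh MHC-IIlo 5. Atp5b, the catalytic subunit of ATP synthase, averaged 862 ± 51.2 CPM in lactate-cultured and 992 ± 59.3 CPM in fresh MHC-IIhi cells, and 885 ± 55.8 and 871 ± 42.2 CPM in MHC-IIlo. Of the mitochondrially encoded genes, 4 of 7 fell in MHC-IIhi and 7 of 7 in MHC-IIlo (median log2 fold change -0.66 and -1.41). mt-Cytb, a subunit of complex III, fell, with log2 fold changes of -1.48 ± 0.22 and -2.23 ± 0.225. The share of all counts from the mitochondrial genome was 0.586% to 0.797% in lactate-cultured and 0.833% to 1.308% in fresh MHC-IIhi libraries, and 0.28% to 0.623% and 0.78% to 1.019% in MHC-IIlo.

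Genes of protein and sterol synthesis fell. All 31 cytosolic ribosomal protein genes measured fell in both subsets, 25 of them more than 2-fold in MHC-IIhi and 4 in MHC-IIlo (median log2 fold change -1.49 and -0.89), and the fall was larger in MHC-IIhi for 23 of them. Of all tested genes, 5.09% had the more positive change in MHC-IIlo. Rpl3 averaged 134 ± 40.8 CPM in lactate-cultured and 591 ± 43.7 CPM in fresh MHC-IIhi cells (log2 fold change -2.14 ± 0.177 (SE), adjusted p = 2.55e-09), and 159.9 ± 31.5 and 479 ± 36.3 CPM in MHC-IIlo (log2 fold change -1.58 ± 0.174 (SE), adjusted p = 2.09e-07). Of 23 genes of cholesterol synthesis and uptake, 21 fell in MHC-IIhi and 21 in MHC-IIlo, 11 and 3 more than 2-fold, and none rose. Srebf2, the factor that drives this pathway, fell, with log2 fold changes of -1.34 ± 0.126 and -1.20 ± 0.126, and Cyp51, an enzyme of it, of -1.94 ± 0.288 and -1.42 ± 0.286. Cell cycle genes that changed mostly rose: of 24, 10 rose and 2 fell in MHC-IIhi, and 11 rose and 1 fell in MHC-IIlo, with 12 and 8 kept within 2-fold. On total counts without TMM, 6 and 7 of them rose, and 6 or 7 rose in MHC-IIlo without lactate-cultured MHC-IIlo 5 or fresh MHC-IIlo 1, 4 or 5.

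Ligands read by T cells moved in both directions. Of 16 checkpoint and costimulatory genes, 7 rose and 6 fell in MHC-IIhi, and 5 rose and 8 fell in MHC-IIlo. For all tested genes these shares were 28.7% and 29.1% in MHC-IIhi, and 25.8% and 27.4% in MHC-IIlo. Cd274, which encodes PD-L1 (ENSMUSG00000016496, chr19:29367455-29388095, plus strand), had 1285, 998, 1595, 1147 and 1253 CPM in lactate-cultured MHC-IIhi libraries, against 156, 134, 128, 183 and 201 CPM in fresh ones. It had 959, 1320, 1848, 725 and 1387 CPM in lactate-cultured MHC-IIlo libraries, against 131, 136, 125, 176 and 147 CPM in fresh ones. Every cultured library lay above every fresh one (log2 fold change 2.97 ± 0.215 (SE), adjusted p = 3.41e-10 in MHC-IIhi, and log2 fold change 3.13 ± 0.216 (SE), adjusted p = 2.58e-10 in MHC-IIlo). The other PD-1 ligand, Pdcd1lg2, fell in both, further in MHC-IIlo (log2 fold change -1.46 ± 0.231 in MHC-IIhi and -3.67 ± 0.283 in MHC-IIlo, a log2 difference of -2.20 ± 0.359 (SE), adjusted p = 0.000437). Cd40, through which T cells license antigen-presenting cells, rose in MHC-IIhi (log2 fold change 2.49 ± 0.268 (SE), adjusted p = 1.16e-07), and Cd86 and Cd80, the ligands of CD28, fell in both subsets.

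Length-scaled levels (CPM per kilobase of gene) let genes be ranked within a group, here by group means and among tested protein-coding genes only. The most abundant of these in fresh cells was Lyz2, which encodes lysozyme. It had 5029 CPM per kb in lactate-cultured and 11720 in fresh MHC-IIhi cells, and 4739 and 11860 in MHC-IIlo. Fth1 led after culture in both, at 29310 in MHC-IIhi, against 4624 in fresh cells, and 29670 in MHC-IIlo, against 6117. In MHC-IIhi, Cd74 ranked 13 after culture and 2 in fresh cells, and Ccl6 481 and 8. In MHC-IIlo, Arg1 ranked 92 after culture and 8 in fresh cells, and Apoe 54 and 12. Of the 15 most abundant in fresh cells, Fth1, B2m, Ctss and Psap rose in both subsets and the others fell, and none was kept within 2-fold in either. These genes were picked for high levels in the same fresh libraries, which favours falls, so the count is a description only. Of all tested genes, 29.1% fell in MHC-IIhi and 27.4% in MHC-IIlo.

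**Figure D5:**
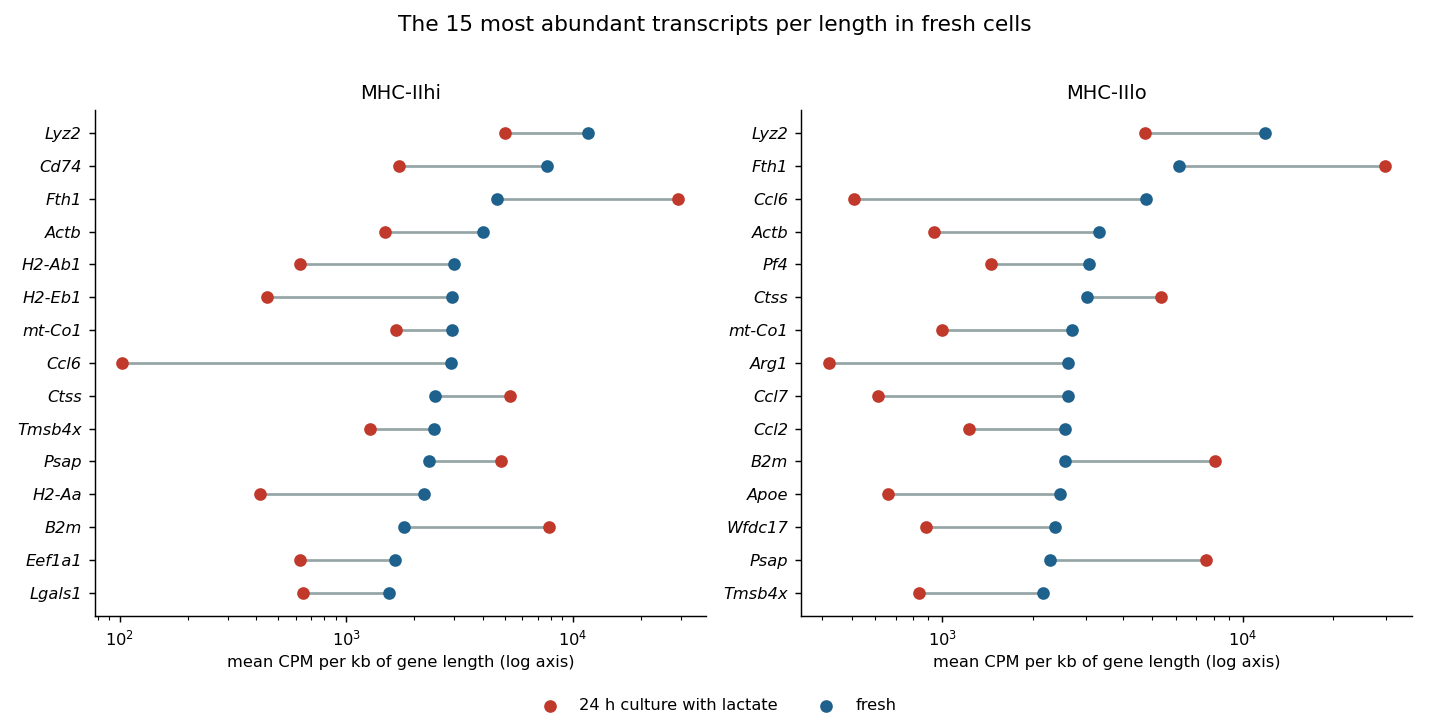
Mean CPM per kb of gene length (log axis) in lactate-cultured (red) and fresh (blue) cells for the 15 protein-coding transcripts with the highest length-scaled level in fresh cells of each subset. Fth1, B2m, Ctss and Psap lie further right in lactate-cultured cells and the other genes further left.

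By the rule for the largest changes, the top rises in MHC-IIhi after those described were Cd200, an inhibitory surface protein (90.4 CPM in lactate-cultured and 0.632 CPM in fresh cells, log2 fold change 7.14 ± 0.336 (SE), adjusted p = 9.54e-13), Ppap2b, a lipid phosphatase (log2 fold change 7.09 ± 0.400 (SE), adjusted p = 1.05e-11), and Ly6i, Ifit3b and Slamf7, with log2 fold changes of 6.49, 6.19 and 6.01. In MHC-IIlo they included Ly6a, H2-Q6 and Il7r, with 5.98, 5.77 and 5.24, of which Ly6 and H2-Q genes have close copies. The largest falls not yet named included B3gnt7, a glycan-extending enzyme (0.76 CPM in lactate-cultured and 84 CPM in fresh MHC-IIhi cells, log2 fold change -6.79 ± 0.296 (SE), adjusted p = 5.34e-13, and 0.601 and 84.8 CPM in MHC-IIlo, log2 fold change -7.10 ± 0.299 (SE), adjusted p = 5.41e-13), with Car4 and Cbr2 in MHC-IIhi (-5.54 and -5.49) and Slc9a9 in MHC-IIlo (-5.93).

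Changes that differed most between the subsets included further surface proteins. Il1r2, the decoy receptor of interleukin-1, fell, with log2 fold changes of -4.73 ± 0.279 in MHC-IIhi and -2.73 ± 0.286 in MHC-IIlo, a log2 difference of 2.00 ± 0.381 (SE), adjusted p = 0.00163. Cd38, an enzyme that consumes NAD, averaged 54.1 ± 9.75 CPM in lactate-cultured and 25.7 ± 7.97 CPM in fresh MHC-IIhi cells, and 8.29 ± 5.64 and 42.9 ± 12 CPM in MHC-IIlo, a log2 difference of -3.45 ± 0.494 (SE), adjusted p = 0.000136. Fpr1, a receptor for bacterial formyl peptides, rose in MHC-IIhi (log2 fold change 3.21 ± 0.253 (SE), adjusted p = 1.29e-09), and its change differed by -3.85 ± 0.342 (SE), adjusted p = 8.3e-07. Olfml2b, an extracellular protein, averaged 164 ± 41.2 CPM in lactate-cultured, 55.5 ± 9.65 CPM in no-lactate and 9.27 ± 2.17 CPM in fresh MHC-IIhi cells, and 39.4 ± 9.5, 14.4 ± 1.45 and 32.2 ± 5.79 CPM in MHC-IIlo, a difference between the changes over fresh of -3.85 ± 0.285 (SE), adjusted p = 4.99e-08. It was higher with lactate than without in both subsets (log2 difference 1.57 ± 0.18 (SE), adjusted p = 0.000337 in MHC-IIhi, and log2 difference 1.45 ± 0.183 (SE), adjusted p = 0.00147 in MHC-IIlo). Tmem154 and Trerf1 had the more positive change in MHC-IIlo (log2 difference 2.00 ± 0.297 (SE), adjusted p = 0.000202, and 1.78 ± 0.198 (SE), adjusted p = 1.23e-05).

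Of the remaining lists, 13 integrins had 4 members higher and 7 lower in MHC-IIhi and 4 and 7 in MHC-IIlo, and Itga4, which binds vascular ligands, was kept in MHC-IIhi and fell in MHC-IIlo (log2 fold change -2.52 ± 0.387, a log2 difference of -2.77 ± 0.523 (SE), adjusted p = 0.00155). Of 17 prostaglandin and leukotriene genes, 4 rose and 8 fell in MHC-IIhi, and 5 rose and 9 fell in MHC-IIlo, with Alox5, which starts leukotriene synthesis, lower, at log2 fold changes of -3.86 ± 0.449 and -4.75 ± 0.473 and Pla2g7, which degrades platelet-activating factor, higher, at 2.16 ± 0.217 and 1.47 ± 0.212. Of 17 growth factors, 4 rose and 7 fell in MHC-IIhi, and 2 rose (4 without lactate-cultured MHC-IIlo 1) and 7 fell in MHC-IIlo, and Tgfb1, which restrains immune cells, fell in both (log2 fold change -1.47 ± 0.169 and -1.40 ± 0.169). Of 20 targets of the amino acid stress factor ATF4, 7 rose and 3 fell in MHC-IIhi, and 9 rose and 2 fell in MHC-IIlo, among them Ddit3, a stress-induced transcription factor, with log2 fold changes of 2.70 ± 0.266 and 3.07 ± 0.268. Of 14 chaperones, 2 rose and 7 fell in MHC-IIhi, and 4 rose and 4 fell in MHC-IIlo, the latter near the shares of all genes. Of 14 fatty acid synthesis genes, 1 rose and 6 fell in MHC-IIhi, and 3 rose and 5 fell in MHC-IIlo. Of 10 pentose phosphate genes, 2 rose and 4 fell in MHC-IIhi, and 3 rose and 5 fell in MHC-IIlo. Of 10 chemokine receptors, 1 rose and 5 fell in MHC-IIhi, and 0 rose and 6 fell in MHC-IIlo. Shares over all tested genes were 28.7% higher and 29.1% lower in MHC-IIhi, and 25.8% and 27.4% in MHC-IIlo.

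Markers of further cell types were measured too. Red cell and platelet markers summed to 0 to 1.223 CPM in lactate-cultured and 3.383 to 41.02 CPM in fresh MHC-IIhi libraries, and 0.1015 to 1.245 and 2.68 to 44.49 CPM in MHC-IIlo. T and NK cell markers summed to 4.413 to 10.8 CPM in lactate-cultured and 14.95 to 18.2 CPM in fresh MHC-IIhi libraries, and 1.67 to 4.714 and 3.921 to 8.342 CPM in MHC-IIlo. Fibroblast markers summed to 45.16 to 106.1 CPM in lactate-cultured and 28.27 to 76.89 CPM in fresh MHC-IIhi libraries, and 44.36 to 76.36 and 39.75 to 125.7 CPM in MHC-IIlo. B cell markers summed to 16.7 to 38.49 CPM in lactate-cultured and 13.98 to 30.34 CPM in fresh MHC-IIhi libraries, and 17.83 to 40.04 and 3.497 to 12.2 CPM in MHC-IIlo. Of the 3 tested, Pax5, a B cell factor, rose in both subsets, with 27.5 CPM in lactate-cultured and 6.36 CPM in fresh MHC-IIhi cells and 27.2 and 5.96 CPM in MHC-IIlo, while Cd79b and Ighm, parts of the B cell receptor, fell in both. The part of such cells in the changes above was not tested.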

How the data were processed

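Raw counts per gene (46603 genes, 30 libraries) and FPKM values (13778 genes) were deposited by the authors. The count table was made with Trimmomatic, STAR and featureCounts on GRCm38, per the submitters' processing notes, which give no versions; whether counting used strand is not given in the sources used here. The deposited FPKM values share nearly the same distribution in every library and served as an alternative. All rows name a gene. Columns of cultured cells carry numbers other than the labels' replicate numbers, so they were assigned to groups by name and libraries are cited by the column's number.

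Genes passing edgeR's filterByExpr were tested by edgeR 4.0.16 (R 4.3.3) with TMM scaling, a quasi-likelihood F test and Benjamini-Hochberg adjustment over all tested genes, in 1 fit of the 20 lactate-cultured and fresh libraries. A call has an adjusted p under 0.05, and changes over 2-fold were tested with glmTreat. The F test gives no SE itself, so each SE was derived as the size of the log2 fold change over the square root of F. The 95% intervals are the estimate ± the t quantile times this SE. Lactate and no-lactate cells were compared in a separate fit of the 20 cultured libraries. Because the fresh libraries serve both cultured groups, cultured levels, where both are given, stand side by side. CPM used all 30 libraries. Alternatives used DESeq2 1.42.0, limma 3.58.1, other scalings, filters, FPKM with pseudocounts of 1 and 0.1, a replicate block and each library left out. The procedure was tested on simulated data. No 2 replicates agreed within counting noise (lowest chi-square per degree of freedom 9.05).

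The members and the 42 pathway and 10 cell type lists (703 of 751 symbols tested) were chosen with earlier results of these data known. Named genes were the 10 largest rises and falls of each subset over 2-fold and the 6 largest differences each way between subsets (average log2 CPM of at least 5), the 15 most abundant protein-coding genes per kilobase in fresh cells, the 2 called members of each list with the smallest p, the 2 kept members with the highest fresh level, and a set followed throughout (Apoe, Arg1, Cd74, Fn1, H2-Ab1, Il1b, Ldha, Ldhb, Mrc1, Nos2, Slc16a3, Spp1 and Vegfa). Not all of these are described, and other examples were chosen after their values were seen. Promoters are from RefSeq, GRCm38.p6. Some single genes are not reported here.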

Additional observations from a re-analysis of the deposited data

Results flagged for a closer look

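Single libraries stood apart from the other 4 of their group in 8 of 128 gene and group combinations examined, and chance alone flags about 1 in 20. Library 5 of the lactate-cultured MHC-IIlo group was high for Il1b, with 128.9 CPM where the group median was 9.916, and for Cxcl3, with 858.2 CPM and a median of 341.7, and low for Apoe, with 612.5 CPM and a median of 1482. In the same group, library 4 had 3179 CPM of Spp1 (median 1986) and library 1 had 107.9 CPM of Fn1 (median 31.79). In lactate-cultured MHC-IIhi, library 6 had 732.6 CPM of Il1b (median 331.5) and library 1 had 1688 CPM of Irg1 (median 1102). In fresh MHC-IIlo, library 5 had 24.85 CPM of Irg1 (median 15.06).

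The change over fresh differed between the subsets for 21 of 41 genes examined, by edgeR's quasi-likelihood test of the difference (log2, MHC-IIlo change minus MHC-IIhi change, Benjamini-Hochberg adjusted p). Of these 21, 12 were named for having the largest differences each way (the 6 positive ones and the 6 below -3), so their calls are a description and the count says nothing of genes at large, of which 12.3% were called. It was positive for Mgl2 (2.171, adjusted p = 0.0101), Il1r2 (1.999, adjusted p = 0.00163), Tmem154 (1.996, adjusted p = 0.000202), Trerf1 (1.776, adjusted p = 1.23e-05), H2-DMb1 (1.762, adjusted p = 9.56e-05) and Fcrls (1.643, adjusted p = 0.0476, lost in 13 of the 20 fits that each left out 1 library). It was negative and below -3 for Ccr7 (-7.08, adjusted p = 2.93e-05), Ccl22 (-5.61, adjusted p = 1.37e-05), Fpr1 (-3.847, adjusted p = 8.3e-07), Olfml2b (-3.846, adjusted p = 4.99e-08), Cd38 (-3.445, adjusted p = 0.000136) and Cxcl3 (-3.44, adjusted p = 0.000113). Ccr7 and Ccl22 were near the floor in MHC-IIlo. Smaller negative differences were found for Arg1 (-2.635, adjusted p = 7.71e-05), Irg1 (-2.391, adjusted p = 2.44e-05), Nos2 (-2.252, adjusted p = 0.00435), Bnip3 (-2.065, adjusted p = 0.000423), Fn1 (-1.899, adjusted p = 0.00947), Rsad2 (-1.523, adjusted p = 0.00682), Csf1r (-1.266, adjusted p = 0.0174), Pdk1 (-1.15, adjusted p = 0.000849) and Slc16a3 (-0.7239, adjusted p = 0.0126).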

How the results depend on the processing

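Counts of genes called over fresh stayed within 1.5 times under every alternative run, and these moved further. The difference between subsets had 456 higher calls with no filter, 1282 higher and 1483 lower with limma voom, 1077 higher on log2(FPKM + 1) and 1142 without a filter there. The higher share of these calls was 41.3% in the fit reported, 51.1% with upper-quartile scaling and 55.8% on log2(FPKM + 1). Changes over 2-fold numbered 448 higher and 435 lower in MHC-IIhi and 303 and 370 in MHC-IIlo on log2(FPKM + 1), 577 and 599, and 409 and 556, with a pseudocount of 0.1, and 439 and 430, and 298 and 353, with no filter, where 10576 genes were kept in MHC-IIhi. Lactate over no-lactate gave 43 higher and 10 lower in MHC-IIhi and 296 and 235 in MHC-IIlo in 1 fit of all 30 libraries, and 95 and 38, and 382 and 333, with DESeq2. The difference between subsets reversed on log2(FPKM + 1) for Cd163 (-2.063), Cdh1 (0.9682), Irf4 (1.09), Ciita (1.54), Cd79b (0.8271), H2-DMb2 (0.9774) and Ighm (1.283), with and without a filter, and for Cd79b with a pseudocount of 0.1 (1.454); the cause was not tested.

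Leaving out 1 library at a time gave 3622 to 4128 higher and 3678 to 4160 lower calls in MHC-IIhi and 3203 to 3635 and 3386 to 3792 in MHC-IIlo. Changes over 2-fold numbered 901 to 1029 and 876 to 1018 in MHC-IIhi and 581 to 697 and 867 to 996 in MHC-IIlo, and kept genes 6663 to 7153 and 7069 to 7454. The difference had 474 to 925 higher and 761 to 1187 lower, and lactate over no-lactate 6 to 41 and 2 to 13 in MHC-IIhi and 36 to 349 and 14 to 409 in MHC-IIlo.

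Same-numbered lactate-cultured and fresh libraries did not deviate together (r of -0.156 to 0.136). Between subsets, r was over 0.1 in 4 of 5 lactate-cultured pairs (-0.0273 to 0.47) and 4 of 5 fresh pairs (0.0554 to 0.382), with 4 of 5 libraries in each closest to their own number, and between lactate and no-lactate in 2 of 4 pairs in MHC-IIhi (-0.293 to 0.411) and 4 of 5 in MHC-IIlo (0.0631 to 0.323). As no set of pairs was over 0.1 throughout and no label ties the numbers to mice, the fits reported carry no block, and shared numbers between subsets are a hint from the data. With the number as a replicate block, calls were 3838 higher and 3912 lower in MHC-IIhi and 3508 and 3694 in MHC-IIlo, the difference 749 and 1133 (1231 and 1600 with numbers nested in culture state, against 691 and 982 reported), and lactate over no-lactate 59 and 22 in MHC-IIhi and 499 and 612 in MHC-IIlo. Low genes are limited by depth.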
